A study of Mus musculus with 9 samples.

Results

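Double-reporter lung cells, which carried GFP as a reporter of type I collagen and tdTomato as a reporter of the forkhead factor Foxf1, were compared with cells that carried the collagen reporter alone. The comparison used 6 of the 9 RNA-seq libraries of the study and every gene of its table, 15141 of 19348 gene symbols after a filter on low counts. Its members were taken from the sample titles: the DBL libraries (replicates 1, 3 and 4) hold cells sorted for both reporters, and the ColGFP libraries (replicates 1, 2 and 3) hold cells sorted for the collagen reporter only. The remaining 3 libraries (TDonly, the Foxf1 reporter alone) served as a reference for levels. All groups came from lungs of C57BL/6J mice of the genotype Col1_GFP;Foxf1_tdTomato, so the controls carry both reporter alleles too, and neither age, sex, treatment nor the number of animals behind a library is given. The gates of the sort are not given. The labels do not tie replicates to separate animals, and a p-value here therefore speaks only to the spread between libraries, part of which may be technical.

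Foxf1 is a transcription factor that works downstream of hedgehog signals from the airway epithelium and is needed to build the mesenchyme and the blood vessels of the lung. In the adult lung it is best known from capillary endothelium and from parts of the fibroblast lineage. Type I collagen is the main fibrillar collagen of the interstitium and is made by several kinds of fibroblast, among them alveolar fibroblasts next to the alveoli, adventitial fibroblasts around vessels and airways, and contractile myofibroblasts at the duct. The comparison asks which genes differ when a collagen-reporter cell also carries the Foxf1 reporter.

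Libraries held 17820969 to 26147475 counts, and 17116 to 17753 genes per library had at least 1 count. Core sample numbers split the libraries into a first series (DBL 1 and ColGFP 1) and, by other leading digits, a second (DBL 3, DBL 4, ColGFP 2 and ColGFP 3), where DBL 1 stands for DBL replicate 1, and so on. The series was a term of the model, since the replicate 1 libraries stood apart: over genes, the chi-square of counts per degree of freedom was 53.8 to 70.3 between replicate 1 and its group's other libraries, against 14.6 between DBL 3 and DBL 4 and 5.32 between ColGFP 2 and ColGFP 3. Leaving out DBL 1 or ColGFP 1 leaves only the second series to carry the contrast. A principal component analysis of log2 CPM put 55.6% of the variance on an axis that separated DBL from ColGFP and 18.02% on a second that separated the replicate 1 libraries from the rest. What the core numbers stand for (a run, a submission or a preparation) is not stated.

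Levels below are counts per 1000000 library counts (CPM) with TMM factors, listed in the order DBL 1, 3 and 4 and then ColGFP 1, 2 and 3. A log2 change is the log2 fold change, DBL minus ColGFP, so a positive value is higher in DBL, and is given with its standard error. A gene was called when edgeR's quasi-likelihood test gave an adjusted p (Benjamini-Hochberg over the 15141 genes) under 0.05. Unless a sentence says otherwise, each gene given as higher or lower was also called when any of the 6 libraries was left out, and its groups did not overlap. Where a count of genes is 0, brackets give the same count by DESeq2, by limma-voom and at an unadjusted p under 0.05 in edgeR. Where a count moves by more than 1.5 times when 1 library is left out, the value without it follows. Every count of a list or family below is to be read against the shares over all genes, 11.5% higher and 9.77% lower. A count near these shares is no more than that of genes at large. CPM are not divided by gene length and are compared between groups, not between genes. A log2 difference within a series is a plain difference of log2 CPM, computed with a prior count of 2.

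The reporter genes were examined first. Foxf1 (Foxf1a in the table, chromosome 8, 121084386 to 121088144, plus strand of GRCm38) had 110.2, 86.0 and 100.2 CPM in DBL and 60.3, 60.3 and 52.8 CPM in ColGFP (log2 change 0.77 ± 0.10, adjusted p = 0.00126). It was thus present in the ColGFP libraries too, at more than 50 CPM in each, and in TDonly it had 281, 232 and 231 CPM. Foxf1 lies inside the gene model Gm20388 on the same strand, and how the counting treated reads shared by both is not given. Col1a1, the alpha-1 chain of type I collagen (chromosome 11, 94936224 to 94953042, plus strand), had 9276, 12054 and 12887 CPM in DBL and 4805, 9254 and 8891 CPM in ColGFP (log2 change 0.62 ± 0.12, adjusted p = 0.00845). Its partner chain Col1a2 had 7236, 9331 and 9608 CPM in DBL and 3849, 7498 and 7289 CPM in ColGFP (log2 change 0.54 ± 0.12, adjusted p = 0.0192). DBL 1 lay below ColGFP 2 and ColGFP 3 for Col1a2, so its groups overlapped, and its call was lost when a library of the second series was left out (adjusted p 0.0694 without DBL 4, 0.0575 without ColGFP 2, 0.0676 without ColGFP 3). Neither collagen gene passed in the model with all 9 libraries (adjusted p = 0.141 for Col1a1 and 0.178 for Col1a2) or without the series term (0.224 and 0.298). Both collagen genes were lowest in replicate 1 of each group, and both reached lower levels in TDonly (375, 1499.8 and 1573 CPM for Col1a1). The third chain gene that is often used with them, Col3a1, had 10562, 12516 and 12158 CPM in DBL and 6216, 11123 and 10988 CPM in ColGFP and did not pass (log2 change 0.36 ± 0.13, adjusted p = 0.103). It passed without DBL 1 (adjusted p = 0.04) and without ColGFP 1 (0.0351).

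Of the 15141 genes, 1742 were higher in DBL (11.5%) and 1479 lower (9.77%), 3221 in all (21.3%). Changes past a log2 fold change of 1 were more frequent upward (854 genes, 5.64%) than downward (510 genes, 3.37%), and past 2 they numbered 233 and 94. Calls that held with all 6 libraries and without each of them numbered 984 upward (6.5%) and 900 downward (5.94%). Without DBL 4 the number of genes higher in DBL was 1068. Groups did not overlap for 5108 genes (33.7%).

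**Figure D1:**
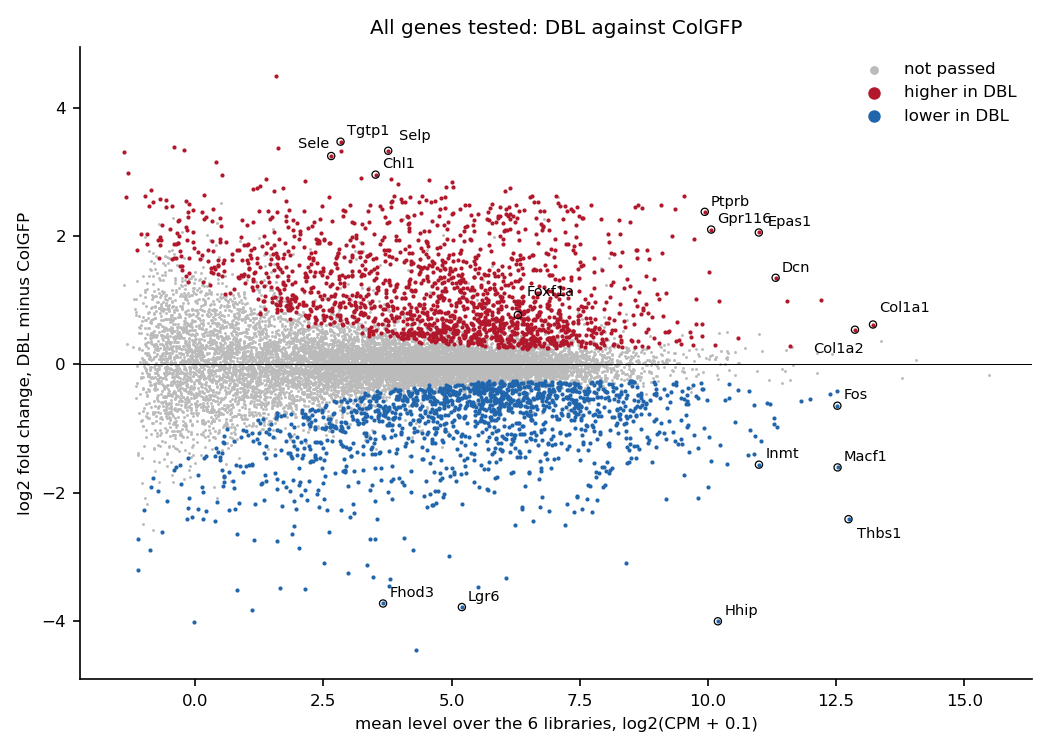
Each point is 1 of the 15141 genes, with its mean level over the 6 libraries, log2(CPM + 0.1), on the x axis and its log2 fold change (DBL minus ColGFP) on the y axis. Red points were higher and blue points lower in DBL at an adjusted p under 0.05, grey points did not pass, and circled genes are described in the text; the lowest labelled point, Hhip at -4.0 ± 0.26 (± SE), lies further from 0 than the highest labelled one, Tgtp1 at 3.47 ± 0.37.

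The second series alone, with 2 libraries a group, called 4300 of 15250 genes (28.2%). The first-series pair, which has no replicates, was set beside it. Of the 2378 genes higher in DBL in the second series and tested in both, 1903 (80%) also had a positive log2 difference in the first-series pair, and of the 1895 lower genes 1666 (87.9%) were negative there. Over all genes tested 64.8% had the same sign in both series. The contrast differed between the series, by the interaction term of the model, for 1621 genes (10.7%), of which 862 (5.69%) had the larger value in the second series and 759 (5.01%) in the first. The residual degrees of freedom of that test were 2. The genes that went opposite ways included airway secretory genes, which are given with the epithelial markers below.

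**Figure D2:**
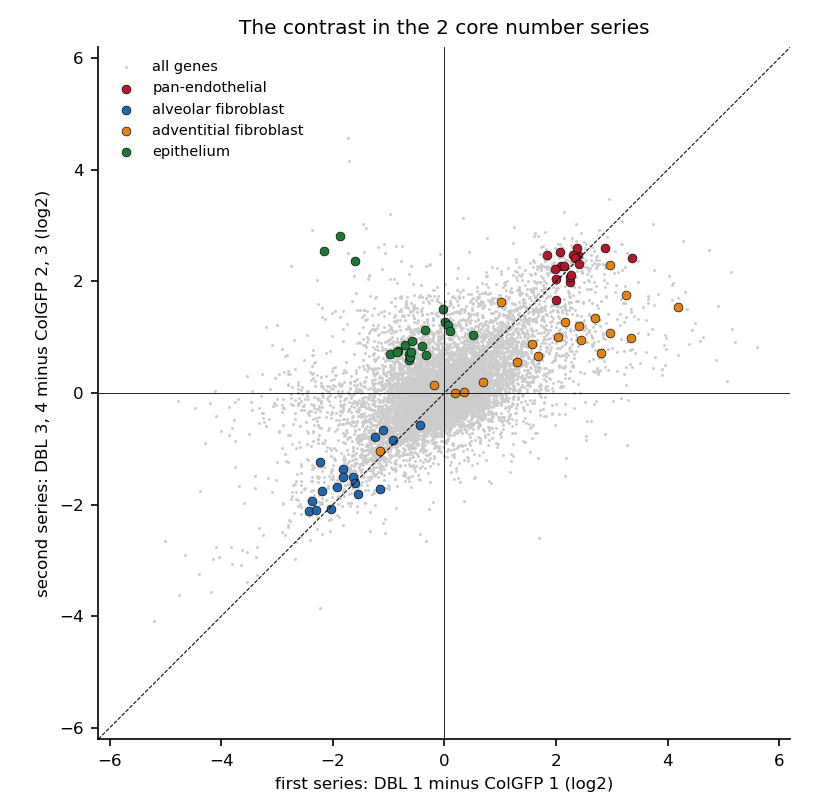
For each gene, the x axis gives the log2 difference between DBL 1 and ColGFP 1 and the y axis that between DBL 3 and 4 and ColGFP 2 and 3; the dashed line marks equal values. Pan-endothelial markers (red) lie near the line, with a median of 2.30 over both series, alveolar fibroblast markers (blue) near it with a median of -1.604, adventitial fibroblast markers (orange) mostly below it, and epithelial markers (green) above it, most of them to the left of 0.

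The 12 largest increases, at 10 CPM or more in DBL, included genes known from endothelium, which are given first. Selp and Sele encode the selectins P and E, which let leukocytes roll on endothelium. Selp had 51.3, 12.7 and 10.8 CPM in DBL and 2.57, 1.28 and 2.24 CPM in ColGFP (log2 change 3.33 ± 0.36, adjusted p = 0.000572). Sele had 22.99, 5.33 and 5.86 CPM in DBL and 0.566, 1.52 and 0.895 CPM in ColGFP (log2 change 3.25 ± 0.59, adjusted p = 0.00695). Both were several times higher in DBL 1 than in the other DBL libraries, and without DBL 1 they were still higher in DBL. Edn1, the precursor of the vasoconstrictor endothelin-1, had 103, 28.8 and 26.1 CPM in DBL and 7.57, 5.31 and 6.49 CPM in ColGFP (log2 change 2.76 ± 0.31, adjusted p = 0.000698). Emcn, the endothelial sialomucin endomucin, had 89.1, 41.8 and 40.4 CPM in DBL and 8.62, 8.11 and 7.11 CPM in ColGFP (log2 change 2.76 ± 0.20, adjusted p = 8.1e-05). Sox17, a transcription factor of arterial endothelium, had 70.2, 50.1 and 49.5 CPM in DBL and 7.79, 9.22 and 6.49 CPM in ColGFP (log2 change 2.84 ± 0.17, adjusted p = 3.69e-05). For these genes too the highest DBL library was DBL 1, and no ColGFP library reached 10 CPM. Robo4, an endothelial receptor that stabilises vessels, had 164, 90.7 and 88.3 CPM in DBL and 22.3, 16.5 and 13.1 CPM in ColGFP (log2 change 2.70 ± 0.12, adjusted p = 1.73e-05). Mfng, a glycosyltransferase that modifies Notch receptors, had 34.0, 22.4 and 24.3 CPM in DBL and 6.53, 2.80 and 2.73 CPM in ColGFP (log2 change 2.81 ± 0.17, adjusted p = 4.53e-05).

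The other genes of this group had less specific or less well-known roles. Grrp1, a small gene rich in glycine and arginine, had 22.8, 12.3 and 14.6 CPM in DBL and 2.44, 2.16 and 1.92 CPM in ColGFP (log2 change 2.90 ± 0.18, adjusted p = 4.57e-05). Mctp1, a calcium-binding membrane protein, had 37.3, 22.1 and 14.6 CPM in DBL and 4.87, 2.92 and 2.15 CPM in ColGFP (log2 change 2.89 ± 0.21, adjusted p = 7.91e-05). Chl1, a cell adhesion molecule of the L1 family, had 53.5, 5.46 and 4.05 CPM in DBL and 2.61, 1.40 and 1.16 CPM in ColGFP (log2 change 2.96 ± 0.51, adjusted p = 0.00549). The level of Chl1 in DBL 1 was about 10 times that in DBL 3, a wider spread than for the genes before it. Tgtp1 and Gbp4 encode GTPases induced by interferon gamma. Tgtp1 had 31.4, 3.33 and 4.29 CPM in DBL and 2.26, 0.759 and 0.179 CPM in ColGFP (log2 change 3.47 ± 0.37, adjusted p = 0.000536). Gbp4 had 260.4, 60.1 and 52.7 CPM in DBL and 31.1, 9.16 and 9.98 CPM in ColGFP (log2 change 2.74 ± 0.13, adjusted p = 1.9e-05). Of the 6 libraries compared, both were highest in DBL 1, and for both ColGFP 1 was the highest of the ColGFP libraries.

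The largest decreases were in genes of varied function. Hhip, a membrane protein that binds and restrains hedgehog ligands and is itself a hedgehog target, had 106, 166 and 138 CPM in DBL and 2864, 1685 and 2066 CPM in ColGFP (log2 change -4.0 ± 0.26, adjusted p = 4.84e-05). Lgr6, a receptor for R-spondins that strengthens WNT signals, had 6.04, 2.97 and 5.12 CPM in DBL and 111, 44.2 and 50.6 CPM in ColGFP (log2 change -3.78 ± 0.22, adjusted p = 3.85e-05). In both the lowest ColGFP library was over 7 times the highest DBL library. Fhod3, a formin that helps assemble sarcomeres, had 1.48, 2.04 and 1.65 CPM in DBL and 33.0, 13.8 and 23.6 CPM in ColGFP (log2 change -3.72 ± 0.32, adjusted p = 0.000171). Cyp2e1, a cytochrome P450 that oxidises ethanol and other small molecules, had 7.23, 8.21 and 7.28 CPM in DBL and 84.8, 71.7 and 93.5 CPM in ColGFP (log2 change -3.46 ± 0.13, adjusted p = 1.73e-05). Trim67, a ubiquitin ligase of the tripartite motif family, had 1.19, 2.97 and 2.24 CPM in DBL and 41.0, 13.7 and 20.4 CPM in ColGFP (log2 change -3.45 ± 0.47, adjusted p = 0.0018). Cyp2e1 was the most even of these, with DBL between 7.23 and 8.21 CPM and ColGFP between 71.7 and 93.5 CPM.

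The rest included genes of ion channels and receptors. Cacna1e, a voltage-gated calcium channel of the R type, had 1.78, 2.93 and 2.75 CPM in DBL and 30.5, 20.01 and 25.1 CPM in ColGFP (log2 change -3.34 ± 0.25, adjusted p = 8.96e-05). Kcnma1, the pore of the large-conductance calcium-activated potassium channel that relaxes smooth muscle, had 2.11, 1.42 and 2.36 CPM in DBL and 27.6, 14.6 and 17.9 CPM in ColGFP (log2 change -3.31 ± 0.24, adjusted p = 7.91e-05). Grik4, a kainate-type glutamate receptor subunit, had 1.74, 2.35 and 2.16 CPM in DBL and 21.1, 16.0 and 17.6 CPM in ColGFP (log2 change -3.13 ± 0.19, adjusted p = 4.27e-05). In TDonly, Cacna1e had 1.84, 2.21 and 2.47 CPM, close to DBL, and Kcnma1 had 0.157, 0.885 and 0.353 CPM, below it. Cdh4, R-cadherin, had 10.7, 13.2 and 11.9 CPM in DBL and 152, 90.2 and 122 CPM in ColGFP (log2 change -3.33 ± 0.19, adjusted p = 3.64e-05). Gper1 (Gpr30 in the table), a membrane receptor for oestrogen, had 1.71, 1.06 and 1.30 CPM in DBL and 25.2, 6.77 and 10.6 CPM in ColGFP (log2 change -3.25 ± 0.29, adjusted p = 0.000233). Greb1, a cofactor of the oestrogen receptor, had 0.779, 1.95 and 0.866 CPM in DBL and 10.6, 9.45 and 10.02 CPM in ColGFP (log2 change -3.10 ± 0.33, adjusted p = 0.000558). ColGFP 1 was the highest ColGFP library for 10 of the 11 genes described in this group, all but Cyp2e1.

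**Figure D3:**
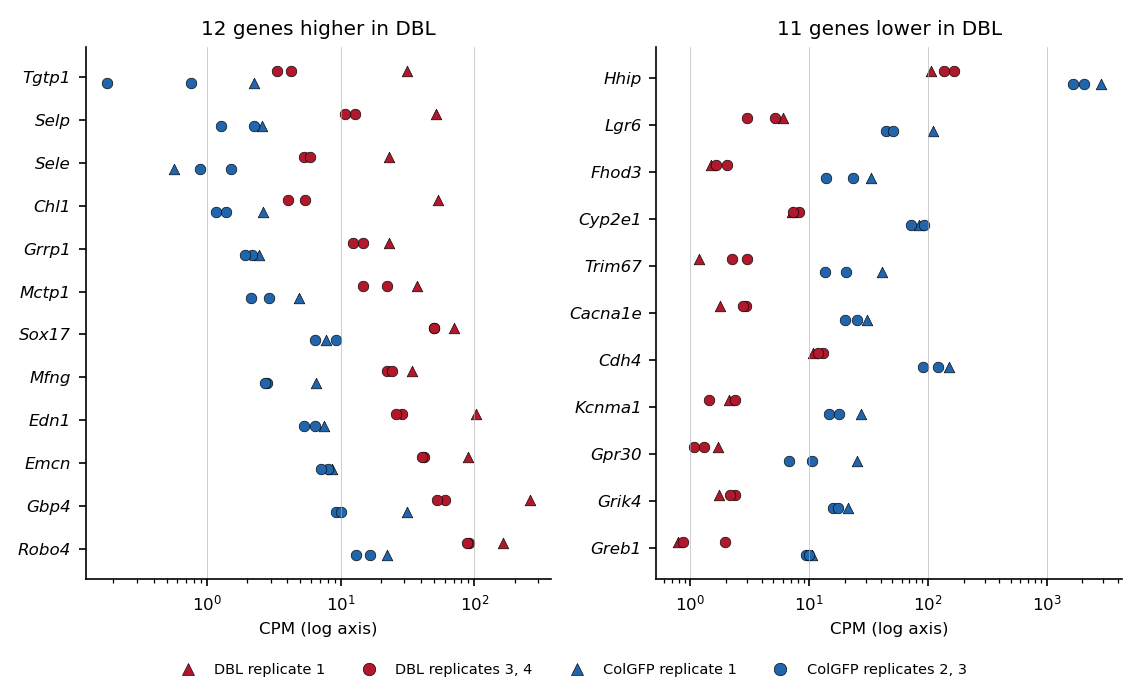
CPM on a log axis in each of the 6 libraries for the 12 genes with the largest increase (left) and 11 of those with the largest decrease (right) in DBL, red for DBL and blue for ColGFP, with triangles for replicate 1 and circles for the second series. The genes were chosen among those without overlap, so red and blue points overlap in no row. In the left panel the red triangle is the highest point of every row, for example 260.4 CPM for Gbp4.

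The promoters of Sele and Grrp1, among the 12 largest increases, and of Hhip and Lgr6, among the largest decreases, are shown. By log2 change Sele had rank 3 and Grrp1 rank 5 of the increases, and Hhip rank 2 and Lgr6 rank 3 of the decreases. These promoters are examples and do not stand for their groups, whose shares are given after them. They are the 250 bases before the RefSeq transcription start on GRCm38.p6, 5′ to 3′ on the gene's strand, with matches to the ETS core CAGGAAG in capitals (either strand; ETS factors such as Erg and Fli1 act in endothelium).
Sele, plus strand, chr1:164047984-164048233: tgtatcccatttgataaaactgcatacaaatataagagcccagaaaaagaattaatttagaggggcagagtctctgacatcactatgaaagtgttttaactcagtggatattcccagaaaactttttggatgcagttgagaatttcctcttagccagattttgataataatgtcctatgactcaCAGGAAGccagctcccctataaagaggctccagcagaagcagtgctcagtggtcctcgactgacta
Grrp1, minus strand, chr4:134254107-134254356: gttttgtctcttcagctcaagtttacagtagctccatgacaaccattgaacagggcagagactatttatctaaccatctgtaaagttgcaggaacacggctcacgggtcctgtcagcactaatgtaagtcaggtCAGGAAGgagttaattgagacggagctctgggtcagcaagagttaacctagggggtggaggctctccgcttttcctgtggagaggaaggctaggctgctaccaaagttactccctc
Hhip, minus strand, chr8:80058009-80058258: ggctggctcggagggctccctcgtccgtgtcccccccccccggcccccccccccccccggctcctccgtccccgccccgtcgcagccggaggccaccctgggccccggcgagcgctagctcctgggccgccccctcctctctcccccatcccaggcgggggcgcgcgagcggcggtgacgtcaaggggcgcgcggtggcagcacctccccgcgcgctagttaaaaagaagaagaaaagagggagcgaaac
Lgr6, minus strand, chr1:135105277-135105526: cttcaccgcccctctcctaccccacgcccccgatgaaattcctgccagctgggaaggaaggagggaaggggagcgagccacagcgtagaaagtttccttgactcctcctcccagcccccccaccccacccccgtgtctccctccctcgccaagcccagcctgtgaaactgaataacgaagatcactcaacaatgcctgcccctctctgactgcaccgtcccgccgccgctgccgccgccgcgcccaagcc
The letters CAGGAAG stood once in the windows of Sele and Grrp1 and not in those of Hhip and Lgr6. Of 10638 tested genes with such a window, 9.98% held CAGGAAG; the share was 10.7% among 1232 genes higher in DBL, 8.32% among 1022 lower genes and 10.1% among the 8384 genes not called. The forkhead core TGTTTAC, searched on both strands in the same windows, stood in 2.08% of all, 2.35% of the higher, 2.15% of the lower and 2.03% of the other genes, and in none of the windows shown. The 2 motifs are distinct words that can share at most 2 bases.

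The genes with the largest shift in CPM gave a second view, weighted to abundant transcripts. Epas1, the hypoxia-inducible factor HIF-2 alpha that is abundant in lung endothelium, had 3223, 3317 and 3241 CPM in DBL and 1119, 702 and 613 CPM in ColGFP (log2 change 2.06 ± 0.17, adjusted p = 0.000148). Ptprb, the vascular endothelial protein tyrosine phosphatase, had 1726, 1633 and 1560.4 CPM in DBL and 409.6, 293 and 261 CPM in ColGFP (log2 change 2.38 ± 0.12, adjusted p = 2.09e-05). Adgrf5 (Gpr116 in the table), an adhesion receptor found on lung endothelium and on type 2 alveolar epithelium, had 1830.0, 1684 and 1669.5 CPM in DBL and 536, 376 and 321 CPM in ColGFP (log2 change 2.10 ± 0.13, adjusted p = 4.13e-05). The DBL libraries lay within 11% of one another in all of these, and ColGFP 1 was the highest ColGFP library. Decorin (Dcn), a small proteoglycan that binds collagen fibrils, had 2682, 3914 and 4104 CPM in DBL and 651, 2001 and 1982 CPM in ColGFP (log2 change 1.35 ± 0.20, adjusted p = 0.00268). The DBL and ColGFP libraries of replicate 1 were the lowest of their groups for Dcn.

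Downward, the largest shift was that of Thbs1, thrombospondin-1, which activates TGF-beta and restrains angiogenesis. Thbs1 had 1918, 2243 and 2268 CPM in DBL and 8739, 12088 and 13805 CPM in ColGFP (log2 change -2.41 ± 0.11, adjusted p = 1.73e-05). Macf1, a linker of actin and microtubules that is high in alveolar fibroblasts, had 2729.9, 3156 and 2882 CPM in DBL and 8282, 8751 and 9622 CPM in ColGFP (log2 change -1.604 ± 0.09, adjusted p = 2.74e-05). Inmt, an N-methyltransferase known as an alveolar fibroblast marker, had 633, 1237 and 1341 CPM in DBL and 2971, 2952 and 3103 CPM in ColGFP (log2 change -1.56 ± 0.20, adjusted p = 0.00121). Every ColGFP library was at least 2 times the highest DBL library in these. Fos, a subunit of the AP-1 factor, had 3557, 5155 and 5194 CPM in DBL and 6638, 7135 and 7649.8 CPM in ColGFP (log2 change -0.64 ± 0.10, adjusted p = 0.00399), a smaller difference in a gene of high level. Hhip and Col1a1, given above, completed the 5 genes in each direction.

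Endothelial genes were higher in DBL as a group. All 18 tested genes of the pan-endothelial list were called higher and none lower (the latter count was 0 by DESeq2, by limma-voom and at an unadjusted p under 0.05), against 11.5% of all genes, with a median log2 fold change of 2.30 against 0.01 for all genes. The summed level of the list was 6456 to 7899 CPM in DBL and 1221 to 1725 CPM in ColGFP, and in TDonly 18998 to 20838 CPM. The changes were close to one another, from 1.78 ± 0.09 for the TGF-beta co-receptor Eng to 2.76 ± 0.20 for Emcn. Cdh5, VE-cadherin of endothelial junctions, had 1304, 999.7 and 1016 CPM in DBL and 258, 194 and 170.5 CPM in ColGFP (log2 change 2.42 ± 0.09, adjusted p = 1.73e-05). Pecam1, the adhesion molecule CD31, had 819, 563 and 564 CPM in DBL and 155, 108 and 95.7 CPM in ColGFP (log2 change 2.45 ± 0.08, adjusted p = 1.73e-05). Egfl7, a secreted endothelial protein, had a log2 fold change of 2.52 ± 0.12 (adjusted p = 1.75e-05). The medians in the first and the second series were 2.26 and 2.37. In bulk RNA of a sorted population, more cells of a type and more RNA per cell cannot be told apart. Genes of endothelium and, in the other direction, of alveolar fibroblasts stand in many of the groups below, where these marker sums moved with the result, and their part in it was not tested.

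Endothelial subsets were not all alike. Of 10 general capillary genes 9 were higher (median 2.06) and none lower (DESeq2 0, limma-voom 0, unadjusted 0). Gpihbp1, which carries lipoprotein lipase to the capillary surface, had 60.9, 42.9 and 44.2 CPM in DBL and 11.6, 10.2 and 5.82 CPM in ColGFP (log2 change 2.44 ± 0.19, adjusted p = 0.000105). Cd93, a C-type lectin receptor of endothelium, had 1578, 1150.5 and 1075 CPM in DBL and 273, 190.0 and 162 CPM in ColGFP (log2 change 2.62 ± 0.10, adjusted p = 1.73e-05). Plvap, the diaphragm protein of fenestrae and caveolae, had 541, 261 and 277 CPM in DBL and 75.1, 58.9 and 49.9 CPM in ColGFP (log2 change 2.49 ± 0.14, adjusted p = 2.74e-05). The Kit receptor, which marks the lung's general capillary cells, had 245, 237 and 229 CPM in DBL and 80.5, 56.5 and 59.5 CPM in ColGFP (log2 change 1.87 ± 0.10, adjusted p = 2.89e-05), with no DBL library within 2 times of a ColGFP library.

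Of 11 genes of aerocytes, the wide capillary cells that face the alveolar air, 7 were higher and 1 lower (median 1.16). Apln, the ligand of the apelin receptor, had 78.6, 51.9 and 50.9 CPM in DBL and 11.8, 13.1 and 8.46 CPM in ColGFP (log2 change 2.43 ± 0.18, adjusted p = 8.87e-05). Car4, carbonic anhydrase 4 of the capillary surface, had 52.7, 61.3 and 64.3 CPM in DBL and 14.9, 17.6 and 14.6 CPM in ColGFP (log2 change 1.92 ± 0.10, adjusted p = 2.74e-05). Prx, periaxin, had 240.5, 296 and 289.8 CPM in DBL and 77.6, 66.6 and 65.1 CPM in ColGFP (log2 change 1.98 ± 0.12, adjusted p = 4.05e-05). The lower gene was Tbx2, a T-box factor that lung fibroblasts also express, with 180.5, 183 and 212 CPM in DBL and 548, 526 and 509 CPM in ColGFP (log2 change -1.46 ± 0.09, adjusted p = 4.84e-05). Ednrb, the endothelin B receptor and a standard aerocyte marker, did not pass. It had 63.1, 108 and 90.9 CPM in DBL and 143, 69.3 and 76.6 CPM in ColGFP (log2 change -0.09 ± 0.31, adjusted p = 0.878), and its log2 difference was -1.18 in the first series and 0.44 in the second. Without DBL 1 or ColGFP 1 it was called higher, at a log2 fold change of 0.44 (adjusted p = 0.0041 and 0.00411).

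Of 10 arterial genes 8 were higher and 1 lower (median 1.44). The connexin Gja4 had 72.8, 63.7 and 70.1 CPM in DBL and 14.8, 14.2 and 11.99 CPM in ColGFP (log2 change 2.33 ± 0.10, adjusted p = 1.73e-05). The related connexin Gja5, which is a standard arterial marker, was the lower one, with 53.9, 42.1 and 44.0 CPM in DBL and 108, 137 and 135 CPM in ColGFP (log2 change -1.44 ± 0.14, adjusted p = 0.000313). The 2 connexins thus went opposite ways, with every library of one group on the same side. Of 8 venous genes 6 were higher and 2 lower (median 1.95). Vwf, von Willebrand factor, had 859, 650.2 and 612 CPM in DBL and 200.2, 116 and 91.0 CPM in ColGFP (log2 change 2.44 ± 0.14, adjusted p = 3.79e-05). Ackr1 (Darc in the table), a chemokine-binding receptor of venules, had only 5.97, 2.17 and 3.38 CPM in DBL and 0.740, 0.584 and 0.761 CPM in ColGFP (log2 change 2.39 ± 0.35, adjusted p = 0.00243). The lower genes were the leptin receptor Lepr, with 131, 182 and 155 CPM in DBL and 283, 288 and 288 CPM in ColGFP (log2 change -0.89 ± 0.10, adjusted p = 0.000844), and Nr2f2, the nuclear receptor that specifies veins and is also found in mesenchyme, with 142, 178 and 181 CPM in DBL and 191, 254 and 244 CPM in ColGFP (log2 change -0.46 ± 0.07, adjusted p = 0.00329).

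Lymphatic genes did not move as a group. Of 6 tested, 2 were higher and 0 lower (DESeq2 0, limma-voom 0, unadjusted 0) (median 0.20). The hyaluronan receptor Lyve1, which occurs outside lymphatics as well, had 152, 141 and 128 CPM in DBL and 49.9, 21.4 and 16.8 CPM in ColGFP (log2 change 2.40 ± 0.25, adjusted p = 0.000464). Flt4, the receptor of VEGF-C, had 91.8, 60.7 and 67.5 CPM in DBL and 26.3, 19.8 and 16.9 CPM in ColGFP (log2 change 1.80 ± 0.10, adjusted p = 2.74e-05). Prox1, the factor that defines lymphatic endothelium, was low and did not pass. It had 4.04, 3.02 and 2.36 CPM in DBL and 2.48, 3.97 and 3.45 CPM in ColGFP (log2 change -0.07 ± 0.30, adjusted p = 0.904).

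The alveolar fibroblast list was the counterpart of the endothelial one. All 17 tested genes were lower in DBL and none higher (DESeq2 0, limma-voom 0, unadjusted 0), against 9.77% of all genes, with a median log2 fold change of -1.604. The summed level was 5821 to 7160.1 CPM in DBL and 19485 to 20864 CPM in ColGFP. Npnt, the integrin ligand nephronectin, had 359, 478 and 464 CPM in DBL and 1647, 1559.9 and 1625 CPM in ColGFP (log2 change -1.90 ± 0.11, adjusted p = 3.58e-05). Its receptor subunit Itga8 had 287, 395 and 359 CPM in DBL and 1489, 1403 and 1458 CPM in ColGFP (log2 change -2.07 ± 0.12, adjusted p = 2.99e-05). Col13a1, a membrane-bound collagen, had 43.5, 40.7 and 41.6 CPM in DBL and 178, 178 and 170.4 CPM in ColGFP (log2 change -2.06 ± 0.07, adjusted p = 1.73e-05). The amino acid transporter Slc38a5 had the largest change of the list, with 24.7, 31.0 and 32.6 CPM in DBL and 133, 138 and 138 CPM in ColGFP (log2 change -2.22 ± 0.09, adjusted p = 1.73e-05), and the fatty acid transporter Slc27a6 followed, with 12.8, 14.2 and 13.2 CPM in DBL and 63.6, 58.6 and 58.5 CPM in ColGFP (log2 change -2.17 ± 0.09, adjusted p = 1.73e-05). Tcf21, the transcription factor of the lipofibroblast lineage, had 61.8, 65.6 and 71.4 CPM in DBL and 117, 121 and 124 CPM in ColGFP (log2 change -0.86 ± 0.08, adjusted p = 0.000204). The smallest change was that of Vegfd (Figf in the table), a lymphatic growth factor, with 87.6, 83.2 and 77.5 CPM in DBL and 119, 119.6 and 119 CPM in ColGFP (log2 change -0.53 ± 0.08, adjusted p = 0.00234). The medians in the series were -1.81 and -1.61.

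Most adventitial fibroblast genes went the other way. Of 20 tested, 15 were higher in DBL and 1 lower (median 1.40), and 13 of the higher ones kept their call whichever library was left out. Mfap5, Gsn, Adh7 and Lum did not pass. The summed level of the list was 22509, 31122 and 33589 CPM in DBL and 13786, 27225 and 26821 CPM in ColGFP. DBL 1 thus lay below ColGFP 2 and ColGFP 3 in this sum. Ly6a, the stem cell antigen Sca-1, had 775, 378 and 377 CPM in DBL and 81.5, 114 and 109 CPM in ColGFP (log2 change 2.25 ± 0.28, adjusted p = 0.00122). The related Ly6c1, which capillary endothelium also makes, had 268, 129.8 and 136 CPM in DBL and 34.0, 29.6 and 24.4 CPM in ColGFP (log2 change 2.53 ± 0.16, adjusted p = 4.56e-05). Ccl11, the chemokine eotaxin, had 103, 88.2 and 98.1 CPM in DBL and 5.57, 32.0 and 31.5 CPM in ColGFP (log2 change 2.32 ± 0.48, adjusted p = 0.0124). Scara5, a ferritin receptor of stromal cells, had 379.9, 674 and 701 CPM in DBL and 58.4, 281 and 261 CPM in ColGFP (log2 change 1.78 ± 0.26, adjusted p = 0.00238). Entpd2, an enzyme that splits extracellular ATP, had 95.8, 127 and 141 CPM in DBL and 12.2, 65.7 and 61.9 CPM in ColGFP (log2 change 1.65 ± 0.35, adjusted p = 0.0134). ColGFP 1 was far below the other ColGFP libraries for Ccl11, Scara5 and Entpd2, and also for Pi16, given below. The list's median was 2.10 in the first series and 0.96 in the second. Pi16, a defining marker of the adventitial fibroblast, had 565, 592 and 649.5 CPM in DBL and 81.0, 402 and 351 CPM in ColGFP (log2 change 1.38 ± 0.39, adjusted p = 0.0435). Its call was lost without libraries of the second series (adjusted p 0.0597 without DBL 3, 0.0929 without DBL 4, 0.0569 without ColGFP 2, 0.0884 without ColGFP 3). The lower gene was Pcolce2, an enhancer of procollagen cleavage, with 251, 356 and 386 CPM in DBL and 560.0, 761 and 768 CPM in ColGFP (log2 change -1.08 ± 0.08, adjusted p = 8.45e-05).

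Contractile and duct-associated genes were lower in DBL. Of 10 myofibroblast genes 9 were lower and none higher (DESeq2 0, limma-voom 0, unadjusted 0) (median -1.84), led by Hhip and Lgr6. Enpp2, the enzyme autotaxin, had 64.8, 75.6 and 70.9 CPM in DBL and 676, 502 and 635 CPM in ColGFP (log2 change -3.10 ± 0.14, adjusted p = 1.73e-05). Aspn, asporin, had 43.8, 94.6 and 68.5 CPM in DBL and 561, 242 and 272 CPM in ColGFP (log2 change -2.30 ± 0.40, adjusted p = 0.00567). Bmp3, an atypical BMP, had 55.8, 72.7 and 73.4 CPM in DBL and 240.2, 304 and 295 CPM in ColGFP (log2 change -2.06 ± 0.07, adjusted p = 1.73e-05). Pdgfra, the PDGF receptor that marks many lung fibroblasts, had 914, 1123 and 1086 CPM in DBL and 1808, 1975 and 2007 CPM in ColGFP (log2 change -0.89 ± 0.08, adjusted p = 0.000186). Aspn was about 2 times higher in ColGFP 1 than in the other ColGFP libraries. Of 16 smooth muscle genes 12 were lower and none higher (DESeq2 0, limma-voom 0, unadjusted 0) (median -0.83), 8 of them whichever library was left out. Myocd, the master coactivator of smooth muscle genes, had 10.9, 9.19 and 9.88 CPM in DBL and 43.8, 27.5 and 34.7 CPM in ColGFP (log2 change -1.81 ± 0.13, adjusted p = 9.13e-05). Mylk, myosin light chain kinase, had 467, 435 and 431 CPM in DBL and 1174, 1099 and 1143 CPM in ColGFP (log2 change -1.36 ± 0.07, adjusted p = 2.74e-05). Acta2, smooth muscle actin, had 291, 205 and 226 CPM in DBL and 899.6, 290.1 and 324 CPM in ColGFP (log2 change -0.88 ± 0.22, adjusted p = 0.0248); DBL 1 overlapped ColGFP 2, and the call was lost without some libraries (adjusted p 0.0683 without DBL 3, 0.0541 without ColGFP 3).

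Pericyte genes were mixed, with 5 of 14 higher and 2 lower (median 0.41). Mcam, an adhesion molecule that endothelium also makes, had 323, 221 and 219.6 CPM in DBL and 107, 63.5 and 56.2 CPM in ColGFP (log2 change 1.78 ± 0.10, adjusted p = 2.7e-05). Ndufa4l2, a subunit-like protein of the respiratory chain, had 8.01, 13.05 and 12.6 CPM in DBL and 3.92, 6.13 and 5.86 CPM in ColGFP (log2 change 1.08 ± 0.14, adjusted p = 0.00126). Kcnj8, the pore of a potassium channel of pericytes, had 23.8, 36.4 and 40.2 CPM in DBL and 63.6, 59.5 and 58.7 CPM in ColGFP (log2 change -0.89 ± 0.16, adjusted p = 0.00719). Cspg4, the NG2 proteoglycan, had 41.3, 33.9 and 35.7 CPM in DBL and 76.7, 48.7 and 49.2 CPM in ColGFP (log2 change -0.63 ± 0.10, adjusted p = 0.00461). Pdgfrb, the pericyte's defining receptor, which fibroblasts share, had 325, 388 and 423 CPM in DBL and 243, 354 and 388 CPM in ColGFP and did not pass (log2 change 0.23 ± 0.09, adjusted p = 0.148).

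Mesothelial genes were higher, with 9 of 11 called higher and 1 lower (median 2.05). The summed level of the list was 840.0 to 969.7 CPM in DBL and 284 to 367 CPM in ColGFP, and in TDonly 118 to 407 CPM. Msln, mesothelin, had 269.8, 223 and 212 CPM in DBL and 39.2, 50.7 and 37.5 CPM in ColGFP (log2 change 2.46 ± 0.15, adjusted p = 4.13e-05). Upk3b, a uroplakin, had 150.3, 134 and 134 CPM in DBL and 24.2, 44.9 and 30.1 CPM in ColGFP (log2 change 2.10 ± 0.20, adjusted p = 0.000322). Bnc1, basonuclin, had 21.7, 24.3 and 21.6 CPM in DBL and 3.57, 5.19 and 5.91 CPM in ColGFP (log2 change 2.22 ± 0.16, adjusted p = 8.55e-05). Aldh1a2, a retinoic acid synthase, had 144, 115 and 120.5 CPM in DBL and 11.5, 43.8 and 30.6 CPM in ColGFP (log2 change 2.28 ± 0.39, adjusted p = 0.00497). For each of these the DBL libraries were close to one another and every one exceeded every ColGFP library. Upk1b was the lower gene, with 74.1, 66.6 and 64.5 CPM in DBL and 128, 99.1 and 99.0 CPM in ColGFP (log2 change -0.66 ± 0.08, adjusted p = 0.000864). The part of mesothelial cells in the other differences was not tested.

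**Figure D4:**
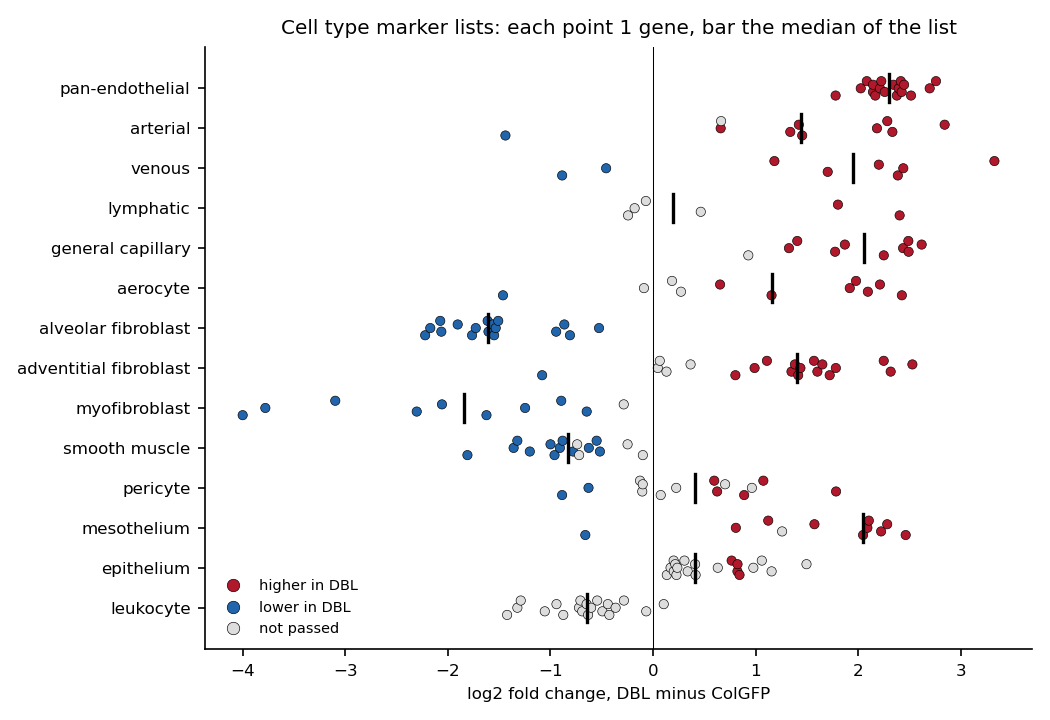
Log2 fold change (DBL minus ColGFP, x axis) of every tested gene of 14 cell type marker lists (y axis), 1 point a gene, with a bar at the median of the list. Red points were higher and blue lower in DBL, grey points did not pass; the medians run from -1.84 for myofibroblasts to 2.30 for pan-endothelial genes.

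Markers of cells outside the collagen and Foxf1 lineages were present in every library. The epithelial list of 20 genes summed to 9279.5, 10193 and 10179 CPM in DBL and 15278, 7416 and 5039 CPM in ColGFP. Of the DBL and ColGFP libraries the highest was ColGFP 1 and the lowest ColGFP 3, with the DBL libraries between them. Of its genes 4 were called higher and none lower (DESeq2 0, limma-voom 0, unadjusted 0), and the higher count was 0 without DBL 3 or DBL 4, 1 without ColGFP 2 or ColGFP 3, 20 without DBL 1 or ColGFP 1. The list's median was -0.61 in the first series and 0.89 in the second. Sftpc, surfactant protein C of type 2 cells, had 4477, 4520.5 and 4582 CPM in DBL and 6924, 3671 and 2487 CPM in ColGFP and did not pass (log2 change 0.17 ± 0.26, adjusted p = 0.701). Cdh1, E-cadherin, had 81.1, 98.4 and 92.7 CPM in DBL and 122, 60.5 and 41.6 CPM in ColGFP and did not pass either (log2 change 0.41 ± 0.30, adjusted p = 0.408). Both were called higher without DBL 1 (adjusted p = 0.00447 for Sftpc and 0.000208 for Cdh1) and without ColGFP 1 (0.00408 and 0.000182). Scgb1a1, the secretoglobin of airway club cells, had 100, 430.3 and 426 CPM in DBL and 365, 72.8 and 51.2 CPM in ColGFP, with log2 differences of -1.87 in the first series and 2.81 in the second (interaction adjusted p = 1.74e-07). Cyp2f2, a club cell cytochrome P450, had 26.4, 97.0 and 101 CPM in DBL and 79.98, 22.1 and 16.6 CPM in ColGFP, with log2 differences of -1.596 in the first series and 2.36 in the second (interaction adjusted p = 3.01e-07). In the second series the DBL libraries were thus above the ColGFP libraries in these markers and in the first series below. Their part in other differences was not tested.

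The leukocyte list of 20 genes summed to 1290.0, 1552 and 1571 CPM in DBL and 2441, 1301 and 1049 CPM in ColGFP, and none of its genes was called by edgeR, neither higher (DESeq2 0, limma-voom 0, unadjusted 0) nor lower (DESeq2 1, limma-voom 0, unadjusted 4). Its median was -2.35 in the first series and -0.11 in the second. The number called higher was 1 without DBL 1 or ColGFP 1, and the number called lower 3 without DBL 1 or ColGFP 1. Ptprc, the pan-leukocyte phosphatase CD45, had 5.08, 30.0 and 32.4 CPM in DBL and 38.2, 29.6 and 38.3 CPM in ColGFP, with DBL 1 below all other libraries. It did not pass (log2 change -0.94 ± 0.51, adjusted p = 0.257). Lyz2, lysozyme of macrophages and type 2 cells, had 1218, 1327 and 1322 CPM in DBL and 2197, 1037 and 747 CPM in ColGFP and did not pass (log2 change 0.10 ± 0.28, adjusted p = 0.841), but was called higher without DBL 1 (adjusted p = 0.00191) and without ColGFP 1 (0.00175). Of 9 Schwann cell and neural genes 4 were higher and 2 lower; the higher count was 1 without DBL 3, DBL 4 or ColGFP 2, 2 without ColGFP 3, and the lower count 1 without DBL 3, DBL 4, ColGFP 2 or ColGFP 3. Of 8 erythroid and platelet genes none was higher (DESeq2 0, limma-voom 0, unadjusted 1) and 1 was lower; the lower count was 2 without DBL 1 or ColGFP 1, and the higher count 1 without DBL 1 or ColGFP 1.

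Of 41 collagen chain genes 5 were higher, a share near the 11.5% of all genes, and 17 were lower in DBL, against 9.77% of all genes (median -0.41). The higher count was 3 without DBL 4 or ColGFP 2, 10 without DBL 1 or ColGFP 1, and the lower count 11 without DBL 4. Col1a1 and Col14a1 were among the higher, while chains of the beaded filaments of type VI were among the lower. Col12a1, which sits on the surface of type I fibrils, had 86.4, 86.6 and 86.9 CPM in DBL and 325, 293 and 338 CPM in ColGFP (log2 change -1.88 ± 0.09, adjusted p = 1.73e-05). Col6a3, a type VI chain, had 819, 1203 and 1161 CPM in DBL and 2364, 2836 and 3061 CPM in ColGFP (log2 change -1.39 ± 0.09, adjusted p = 4.64e-05). Col27a1, a minor fibrillar collagen, had 39.4, 41.3 and 44.9 CPM in DBL and 97.7, 116 and 128 CPM in ColGFP (log2 change -1.43 ± 0.09, adjusted p = 4.48e-05). Col17a1, a membrane-bound collagen known from epithelia, had 7.86, 15.3 and 13.5 CPM in DBL and 40.7, 36.9 and 36.2 CPM in ColGFP (log2 change -1.68 ± 0.21, adjusted p = 0.00112). Among 24 genes of collagen maturation 2 were higher (1 without DBL 4, ColGFP 2 or ColGFP 3) and 7 lower. Lox, lysyl oxidase, which starts the crosslinks of collagen and elastin, had 288, 370.4 and 325 CPM in DBL and 551, 499 and 469 CPM in ColGFP (log2 change -0.63 ± 0.12, adjusted p = 0.00737). P4ha3, a prolyl 4-hydroxylase subunit, had 6.49, 3.28 and 3.90 CPM in DBL and 41.8, 25.1 and 32.5 CPM in ColGFP (log2 change -2.89 ± 0.16, adjusted p = 2.74e-05). P3h2 (Leprel1 in the table), a prolyl 3-hydroxylase, had 4.93, 3.19 and 3.38 CPM in DBL and 13.8, 8.87 and 11.5 CPM in ColGFP (log2 change -1.58 ± 0.17, adjusted p = 0.000518).

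Of 29 proteoglycan genes 7 were higher (4 without DBL 4, 11 without DBL 1 or ColGFP 1) and 11 lower. Beside Dcn and Aspn, Prelp, a leucine-rich proteoglycan that anchors basement membranes, had 613, 500.5 and 548 CPM in DBL and 1306, 1627 and 1783 CPM in ColGFP (log2 change -1.50 ± 0.14, adjusted p = 0.00025). Gpc1, a glypican that carries heparan sulphate, had 26.4, 25.0 and 30.5 CPM in DBL and 86.2, 70.3 and 78.0 CPM in ColGFP (log2 change -1.51 ± 0.11, adjusted p = 9.87e-05). Ogn, osteoglycin, had 323, 713 and 546 CPM in DBL and 1436, 1217 and 1106 CPM in ColGFP (log2 change -1.30 ± 0.26, adjusted p = 0.00988). Dcn was thus higher and the related Aspn, Prelp and Ogn were lower in every DBL library than in any ColGFP library. Of 25 matricellular genes 4 were higher (2 without DBL 4, ColGFP 2 or ColGFP 3) and 9 lower (14 without DBL 1 or ColGFP 1). Spon1, spondin-1, had 367, 333 and 331 CPM in DBL and 1072, 1161 and 1179.8 CPM in ColGFP (log2 change -1.73 ± 0.09, adjusted p = 2.16e-05). Ccn1 (Cyr61 in the table), a target of YAP, had 869.9, 966 and 1068 CPM in DBL and 2671, 2469.8 and 2568 CPM in ColGFP (log2 change -1.41 ± 0.10, adjusted p = 7.1e-05). Sparcl1, hevin, had 1303, 1126 and 1167 CPM in DBL and 2024, 2605 and 2674 CPM in ColGFP (log2 change -1.01 ± 0.13, adjusted p = 0.00109).

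Of 24 basement membrane genes 6 were higher (12 without DBL 1 or ColGFP 1) and 8 lower (5 without DBL 3, DBL 4, ColGFP 2 or ColGFP 3). Lama1, a laminin chain of embryonic basement membranes, had 6.56, 8.87 and 11.2 CPM in DBL and 1.87, 2.10 and 1.48 CPM in ColGFP (log2 change 2.26 ± 0.25, adjusted p = 0.000567). Fras1, Frem1 and Frem2 encode parts of a complex that anchors epithelium to mesenchyme. Frem1 had 40.2, 45.8 and 43.1 CPM in DBL and 119.7, 145 and 152 CPM in ColGFP (log2 change -1.68 ± 0.08, adjusted p = 1.9e-05). Fras1 had 91.1, 106 and 93.9 CPM in DBL and 42.1, 53.4 and 45.6 CPM in ColGFP (log2 change 1.05 ± 0.10, adjusted p = 0.000244). Frem2 had 8.68, 11.2 and 9.56 CPM in DBL and 3.05, 3.85 and 4.83 CPM in ColGFP (log2 change 1.34 ± 0.18, adjusted p = 0.00146). Frem1 was thus lower and its partners were higher in DBL, each without overlap. Of 18 elastic fibre genes 3 were higher and 6 lower (10 without DBL 1 or ColGFP 1). Fbln2, fibulin-2, had 363, 528 and 551 CPM in DBL and 93.9, 269 and 256 CPM in ColGFP (log2 change 1.34 ± 0.18, adjusted p = 0.00162). Emilin2 had 100.5, 109 and 121 CPM in DBL and 25.3, 56.7 and 60.8 CPM in ColGFP (log2 change 1.30 ± 0.20, adjusted p = 0.00311), while the related Emilin1 had 268, 204 and 213 CPM in DBL and 349.7, 405 and 414 CPM in ColGFP (log2 change -0.78 ± 0.13, adjusted p = 0.00406). Mfap4, a microfibril-associated protein, had 773, 569 and 618 CPM in DBL and 1547, 1166 and 1179 CPM in ColGFP (log2 change -0.99 ± 0.08, adjusted p = 0.00011).

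Of 21 integrin genes 7 were higher and 4 lower (7 without DBL 1 or ColGFP 1). Itga6, the laminin-binding alpha-6 subunit, had 225, 157 and 146 CPM in DBL and 56.7, 33.7 and 28.3 CPM in ColGFP (log2 change 2.19 ± 0.11, adjusted p = 2.05e-05). Its partner Itgb4 had 25.7, 18.1 and 18.1 CPM in DBL and 8.88, 6.65 and 5.41 CPM in ColGFP (log2 change 1.57 ± 0.13, adjusted p = 0.000139). The collagen-binding subunit Itga1 had 335, 257 and 258 CPM in DBL and 107, 94.9 and 89.0 CPM in ColGFP (log2 change 1.54 ± 0.08, adjusted p = 2.28e-05), and the second collagen-binding subunit, Itga2, had 40.0, 30.1 and 31.1 CPM in DBL and 9.53, 11.6 and 8.55 CPM in ColGFP (log2 change 1.77 ± 0.16, adjusted p = 0.000204). The laminin and collagen receptors named were higher in DBL, and the receptor of nephronectin, Itga8, was lower. Of 37 matrix proteases and inhibitors 10 were higher (3 without DBL 4, 4 without ColGFP 2 or ColGFP 3, 6 without DBL 3) and 13 lower. Adamts8, a metalloprotease with thrombospondin repeats, had 34.1, 41.0 and 46.0 CPM in DBL and 254, 163 and 178 CPM in ColGFP (log2 change -2.28 ± 0.19, adjusted p = 0.000159). Timp4, a metalloprotease inhibitor, had 2.74, 2.17 and 2.16 CPM in DBL and 10.9, 5.08 and 5.06 CPM in ColGFP (log2 change -1.50 ± 0.22, adjusted p = 0.00265). Serpine2, an inhibitor of thrombin and plasminogen activators, had 119.7, 96.9 and 94.8 CPM in DBL and 414, 304 and 329 CPM in ColGFP (log2 change -1.75 ± 0.08, adjusted p = 1.73e-05).

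Of 34 endothelial transcription factors 19 were higher and 5 lower (median 0.87); the lower count was 2 without DBL 3, ColGFP 2 or ColGFP 3, 3 without DBL 4. The SoxF factors, which act in vessel development, were all higher. Beside Sox17, Sox18 had 53.3, 43.5 and 53.4 CPM in DBL and 8.27, 9.69 and 6.85 CPM in ColGFP (log2 change 2.60 ± 0.16, adjusted p = 4.05e-05). Sox7 had 156, 123 and 122 CPM in DBL and 23.8, 29.6 and 22.5 CPM in ColGFP (log2 change 2.39 ± 0.14, adjusted p = 4.02e-05). Tal1, a basic helix-loop-helix factor of blood and endothelium, had 24.3, 25.2 and 22.0 CPM in DBL and 4.87, 4.38 and 3.22 CPM in ColGFP (log2 change 2.53 ± 0.16, adjusted p = 5.38e-05). Bcl6b, a zinc finger repressor, had 83.1, 56.0 and 55.3 CPM in DBL and 9.57, 12.4 and 12.3 CPM in ColGFP (log2 change 2.48 ± 0.19, adjusted p = 0.000107). The order of the libraries was similar for these, with DBL 1 at or near the top. Of 13 genes of the Sox family 6 were higher and 1 lower (2 without DBL 1 or ColGFP 1). Sox11, a factor of embryonic mesenchyme and neurons, had 23.4, 36.4 and 27.8 CPM in DBL and 6.61, 6.83 and 6.31 CPM in ColGFP (log2 change 2.13 ± 0.16, adjusted p = 0.000105). Of 5 Gata factors 3 were higher and 1 lower. Gata2, a factor of endothelium and blood, had 122, 107 and 109 CPM in DBL and 36.6, 19.7 and 15.7 CPM in ColGFP (log2 change 2.31 ± 0.19, adjusted p = 0.000147). Gata5 had 19.9, 18.6 and 18.5 CPM in DBL and 69.4, 66.2 and 68.1 CPM in ColGFP (log2 change -1.84 ± 0.08, adjusted p = 1.73e-05).

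Of 74 mesenchymal transcription factors 14 were higher (9 without DBL 4) and 24 lower (median -0.14). Of 12 T-box genes 2 were higher and 3 lower. Tbx4, the lung mesenchyme factor that drives much of the fibroblast lineage, had 85.8, 86.4 and 90.4 CPM in DBL and 391, 285 and 311 CPM in ColGFP (log2 change -1.90 ± 0.11, adjusted p = 3.75e-05). Tbx5 had 48.3, 51.7 and 54.9 CPM in DBL and 117, 104 and 106 CPM in ColGFP (log2 change -1.08 ± 0.09, adjusted p = 0.00016). Tbx3, by contrast, was higher, with 222, 223 and 235 CPM in DBL and 129, 119 and 127 CPM in ColGFP (log2 change 0.86 ± 0.08, adjusted p = 0.000214), and so was the low Tbx18, a factor of pericytes and mesothelium, with 9.12, 9.58 and 8.26 CPM in DBL and 2.70, 4.38 and 2.86 CPM in ColGFP (log2 change 1.46 ± 0.22, adjusted p = 0.00283). The close relatives Tbx2 and Tbx3 therefore went opposite ways, as did the pair of Foxf genes. Foxf2, the paralog of Foxf1, had 23.9, 24.7 and 23.8 CPM in DBL and 77.8, 75.4 and 71.7 CPM in ColGFP (log2 change -1.63 ± 0.08, adjusted p = 2.05e-05). Over 29 forkhead genes 3 were higher (10 without DBL 1 or ColGFP 1) and 5 lower (2 without ColGFP 2 or ColGFP 3, 3 without DBL 3 or DBL 4). The share of forkhead genes higher, 10.3%, was near the 11.5% of all genes. Pgr, the progesterone receptor, had 6.49, 7.19 and 5.39 CPM in DBL and 1.74, 1.17 and 1.25 CPM in ColGFP (log2 change 2.20 ± 0.23, adjusted p = 0.000519). Scx, scleraxis, the tendon factor, had 1.11, 1.11 and 1.93 CPM in DBL and 6.22, 3.62 and 5.77 CPM in ColGFP (log2 change -1.91 ± 0.34, adjusted p = 0.00609).

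Hox genes were lower throughout where they changed. Of 15 tested, none was higher (DESeq2 0, limma-voom 0, unadjusted 0) and 9 were lower (median -0.72), 4 of them whichever library was left out. Hoxa5, the Hox gene best known for its part in lung development, had 31.7, 45.2 and 44.5 CPM in DBL and 79.0, 90.3 and 90.3 CPM in ColGFP (log2 change -1.11 ± 0.09, adjusted p = 0.000141). Hoxa7 had 2.11, 2.80 and 3.19 CPM in DBL and 7.18, 6.42 and 8.05 CPM in ColGFP (log2 change -1.43 ± 0.21, adjusted p = 0.00228). Hoxb6 had 2.37, 2.44 and 3.35 CPM in DBL and 6.397, 7.06 and 8.28 CPM in ColGFP (log2 change -1.41 ± 0.20, adjusted p = 0.00207). Apart from Hoxa5 these were low, under 10 CPM in every library, and each DBL library was below each ColGFP library.

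Hedgehog genes did not move one way. Of 16 tested, 4 were higher and 3 lower (median 0.05). Hhip, the antagonist, had the largest change of the pathway. The receptor Ptch1, itself a target of the pathway, had 212, 306 and 331 CPM in DBL and 208, 297 and 302 CPM in ColGFP and did not pass (log2 change 0.07 ± 0.07, adjusted p = 0.584). Smo, the signal transducer, had 108, 113 and 126 CPM in DBL and 93.9, 124 and 124 CPM in ColGFP and did not pass (log2 change 0.03 ± 0.09, adjusted p = 0.836). Gli1, the target used most often to read the pathway, had 81.1, 93.3 and 97.6 CPM in DBL and 43.4, 71.8 and 63.9 CPM in ColGFP (log2 change 0.63 ± 0.11, adjusted p = 0.00533). The co-receptors differed in direction: Cdon had 263, 424 and 442 CPM in DBL and 75.3, 227 and 216 CPM in ColGFP (log2 change 1.24 ± 0.17, adjusted p = 0.0016). Boc had 233, 309 and 349 CPM in DBL and 386, 508 and 522 CPM in ColGFP (log2 change -0.68 ± 0.08, adjusted p = 0.000964). Disp2, a relative of the protein that releases hedgehog ligands, had 43.9, 29.5 and 31.5 CPM in DBL and 7.66, 5.54 and 4.92 CPM in ColGFP (log2 change 2.54 ± 0.11, adjusted p = 1.73e-05).

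WNT genes were lower more often than higher. Of 53 tested, 19 were lower (35.8%, against 9.77% of all genes) and 6 higher (11 without DBL 1 or ColGFP 1), with a median of -0.14. The share higher, 11.3%, was near the 11.5% of all genes. The R-spondin receptor Lgr5 followed Lgr6, with 2.60, 2.93 and 2.75 CPM in DBL and 16.8, 15.1 and 22.9 CPM in ColGFP (log2 change -2.73 ± 0.19, adjusted p = 7.91e-05). Wnt2, a ligand of the lung mesenchyme, had 13.6, 19.7 and 17.4 CPM in DBL and 71.1, 48.0 and 48.0 CPM in ColGFP (log2 change -1.70 ± 0.20, adjusted p = 0.000909). The secreted inhibitors Wif1 and Notum, which are also targets of the pathway, were low. Wif1 had 1.71, 2.75 and 2.99 CPM in DBL and 10.9, 10.7 and 13.5 CPM in ColGFP (log2 change -2.26 ± 0.20, adjusted p = 0.000215). Notum had 3.63, 5.77 and 7.52 CPM in DBL and 17.2, 16.6 and 16.8 CPM in ColGFP (log2 change -1.62 ± 0.22, adjusted p = 0.00167). Axin2, the common target gene of WNT signals, chosen for mention after its values were seen, had 39.5, 44.2 and 47.0 CPM in DBL and 94.9, 108 and 121 CPM in ColGFP (log2 change -1.31 ± 0.08, adjusted p = 4.72e-05). The genes named were each lower in every DBL library than in any ColGFP library. They were picked for large changes or after their values were seen, and do not speak for the other genes of the list.

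Among 52 genes of BMP and TGF-beta signalling, 15 were higher and 17 lower (median -0.10). Bmp6, a ligand made by endothelium, had 134, 97.8 and 106 CPM in DBL and 25.5, 20.8 and 17.2 CPM in ColGFP (log2 change 2.42 ± 0.10, adjusted p = 1.73e-05). Bmp5, a ligand of fibroblasts, had 37.3, 47.3 and 48.4 CPM in DBL and 261, 243 and 248 CPM in ColGFP (log2 change -2.51 ± 0.11, adjusted p = 1.73e-05). The secreted antagonists Grem1 and Nog were lower. Grem1 had 0.593, 0.133 and 0.118 CPM in DBL and 3.09, 2.98 and 2.998 CPM in ColGFP (log2 change -3.51 ± 0.49, adjusted p = 0.00205). Nog had 0.408, 0.355 and 0.354 CPM in DBL and 2.002, 1.98 and 2.15 CPM in ColGFP (log2 change -2.44 ± 0.33, adjusted p = 0.0017). Grem1 and Nog were under 4 CPM in all libraries.

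None of 33 FGF and HGF genes was higher (DESeq2 3, limma-voom 0, unadjusted 5), with 4 without DBL 1 or ColGFP 1, and 10 were lower (median -0.14). Fgf10, the ligand that drives branching of the airway epithelium, had 25.0, 45.1 and 36.1 CPM in DBL and 94.9, 118 and 119 CPM in ColGFP (log2 change -1.67 ± 0.12, adjusted p = 8.48e-05). Fgf7, the keratinocyte growth factor, had 32.3, 35.8 and 31.4 CPM in DBL and 71.0, 87.3 and 86.9 CPM in ColGFP (log2 change -1.29 ± 0.09, adjusted p = 8.58e-05). Fgf18 had 3.86, 4.13 and 4.604 CPM in DBL and 11.1, 8.40 and 10.4 CPM in ColGFP (log2 change -1.25 ± 0.18, adjusted p = 0.00226). The receptor Fgfr4 had 21.2, 28.4 and 29.1 CPM in DBL and 80.5, 90.9 and 94.2 CPM in ColGFP (log2 change -1.76 ± 0.09, adjusted p = 2.04e-05). Etv1, an ETS factor downstream of FGF receptors, had 10.3, 15.0 and 13.8 CPM in DBL and 43.5, 39.4 and 41.7 CPM in ColGFP (log2 change -1.69 ± 0.14, adjusted p = 0.00016). The ligands, receptor and target named were all lower. They were picked for large changes and do not speak for the other genes of the list. Of 26 PDGF and IGF genes 3 were higher (5 without DBL 1 or ColGFP 1), a share near the 11.5% of all genes. Of the same genes 6 were lower (23.1%, against 9.77% of all genes). Pdgfb, the ligand by which endothelium recruits pericytes, had 162, 90.4 and 97.8 CPM in DBL and 29.2, 23.6 and 18.5 CPM in ColGFP (log2 change 2.27 ± 0.12, adjusted p = 2.74e-05). Pdgfc had 3.08, 1.02 and 1.06 CPM in DBL and 6.53, 6.07 and 6.67 CPM in ColGFP (log2 change -2.03 ± 0.34, adjusted p = 0.00458). Pappa2, a protease that frees IGF from its binding proteins, had 14.9, 23.7 and 28.2 CPM in DBL and 179.7, 88.4 and 116 CPM in ColGFP (log2 change -2.50 ± 0.32, adjusted p = 0.00138). The binding proteins differed in direction: Igfbp4 had 1504, 1319.5 and 1625 CPM in DBL and 277, 789 and 736 CPM in ColGFP (log2 change 1.44 ± 0.29, adjusted p = 0.0109). Igfbp3 had 98.2, 263 and 278 CPM in DBL and 473, 471 and 533 CPM in ColGFP (log2 change -1.34 ± 0.26, adjusted p = 0.0095).

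Of 27 VEGF, angiopoietin and apelin genes 13 were higher and 6 lower (3 without DBL 3 or ColGFP 3), with a median of 0.54. The receptors of this list are given first. Flt1, VEGF receptor 1, had 286, 239 and 245 CPM in DBL and 56.2, 48.3 and 42.1 CPM in ColGFP (log2 change 2.40 ± 0.09, adjusted p = 1.73e-05). Tie1, an orphan receptor beside the angiopoietin receptor, had 314, 256 and 245 CPM in DBL and 63.9, 48.2 and 41.9 CPM in ColGFP (log2 change 2.42 ± 0.09, adjusted p = 1.73e-05). Aplnr, the apelin receptor, had 102, 88.4 and 88.9 CPM in DBL and 20.9, 17.6 and 11.7 CPM in ColGFP (log2 change 2.49 ± 0.16, adjusted p = 4.72e-05). Calcrl, the receptor of adrenomedullin, had 723, 1219 and 841 CPM in DBL and 173, 183 and 136 CPM in ColGFP (log2 change 2.48 ± 0.21, adjusted p = 0.000156). Ligands and receptors of one axis could differ in direction. Angpt1, the angiopoietin that perivascular cells make, chosen for mention after its values were seen, had 57.9, 84.8 and 67.1 CPM in DBL and 144, 146 and 143 CPM in ColGFP (log2 change -1.06 ± 0.12, adjusted p = 0.000772), while its receptor Tek had 405, 447 and 422 CPM in DBL and 101, 111 and 101 CPM in ColGFP (log2 change 2.03 ± 0.08, adjusted p = 1.73e-05). Vegfa, the main angiogenic ligand, also named after its values were seen, had 366, 326 and 349.7 CPM in DBL and 241, 247 and 229 CPM in ColGFP (log2 change 0.54 ± 0.08, adjusted p = 0.00244).

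Of 22 Notch genes 13 were higher and 5 lower (median 0.94). The receptor Notch4, found on endothelium, had 209.7, 160.2 and 161 CPM in DBL and 37.0, 37.5 and 26.7 CPM in ColGFP (log2 change 2.39 ± 0.13, adjusted p = 2.99e-05). The ligand Dll4, which restrains sprouting, had 105, 94.3 and 99.3 CPM in DBL and 21.5, 23.2 and 16.9 CPM in ColGFP (log2 change 2.28 ± 0.12, adjusted p = 2.74e-05). Jag2 had 49.5, 35.2 and 36.7 CPM in DBL and 8.92, 11.3 and 5.68 CPM in ColGFP (log2 change 2.23 ± 0.23, adjusted p = 0.000484). Dll1 had 63.9, 41.0 and 41.6 CPM in DBL and 16.8, 8.52 and 9.31 CPM in ColGFP (log2 change 2.11 ± 0.11, adjusted p = 2.09e-05). These ligands, the receptor and the modifying enzyme Mfng were 3 or more times higher in each DBL library than in the highest ColGFP library, with the exception of Dll1.

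Of 42 vasoactive genes 14 were higher and 14 lower (median 0.01). Nos3, endothelial nitric oxide synthase, had 39.8, 25.7 and 28.5 CPM in DBL and 6.96, 5.66 and 2.95 CPM in ColGFP (log2 change 2.62 ± 0.22, adjusted p = 0.000153). Nos2, the inducible synthase, had 22.3, 7.46 and 8.30 CPM in DBL and 2.57, 1.81 and 2.19 CPM in ColGFP (log2 change 2.39 ± 0.27, adjusted p = 0.000673). Agt, the precursor of angiotensin, had 5.89, 3.64 and 3.50 CPM in DBL and 43.0, 16.7 and 26.9 CPM in ColGFP (log2 change -2.71 ± 0.20, adjusted p = 8.99e-05). Adra1a, the alpha-1A adrenergic receptor, had 17.1, 40.0 and 36.6 CPM in DBL and 118, 176 and 193 CPM in ColGFP (log2 change -2.44 ± 0.13, adjusted p = 2.32e-05). Adrb1, the beta-1 adrenergic receptor, had 34.6, 25.6 and 28.3 CPM in DBL and 8.22, 6.36 and 4.74 CPM in ColGFP (log2 change 2.21 ± 0.14, adjusted p = 5.43e-05). Edn1 and the receptor Ednra went opposite ways; Ednra, named after its values were seen, had 103, 132 and 131 CPM in DBL and 413, 336 and 351 CPM in ColGFP (log2 change -1.59 ± 0.13, adjusted p = 0.000156).

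Of 64 guidance genes 22 were higher (34.4%) and 17 lower (26.6%), against 11.5% and 9.77% of all genes (median 0.06). Beside Robo4, semaphorins were among the higher genes. Sema7a, a membrane-anchored semaphorin, had 219, 125 and 131 CPM in DBL and 44.7, 18.96 and 18.3 CPM in ColGFP (log2 change 2.61 ± 0.12, adjusted p = 1.73e-05). Sema3g, a secreted one of arteries, had 186, 193 and 185 CPM in DBL and 46.9, 33.1 and 29.3 CPM in ColGFP (log2 change 2.39 ± 0.14, adjusted p = 3.77e-05). Sema6a had 206, 195 and 200.2 CPM in DBL and 56.6, 60.0 and 57.8 CPM in ColGFP (log2 change 1.79 ± 0.08, adjusted p = 1.73e-05). Sema3f had 191, 161 and 177 CPM in DBL and 65.1, 49.4 and 45.6 CPM in ColGFP (log2 change 1.74 ± 0.10, adjusted p = 2.74e-05). The Slit ligand and its receptors split by member: while Robo4 was higher, Slit2, Robo1 and Robo2, named after their values were seen, were lower. Slit2 had 201, 162 and 162 CPM in DBL and 429.7, 534 and 556 CPM in ColGFP (log2 change -1.53 ± 0.14, adjusted p = 0.000227). Robo1 had 39.5, 47.2 and 47.1 CPM in DBL and 112, 111 and 118 CPM in ColGFP (log2 change -1.35 ± 0.08, adjusted p = 4.53e-05). Robo2 had 57.1, 63.1 and 61.6 CPM in DBL and 198, 175 and 185 CPM in ColGFP (log2 change -1.62 ± 0.09, adjusted p = 2.74e-05).

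Of 19 genes of lysophosphatidic acid and sphingosine-1-phosphate (S1P) signalling 4 were higher and 3 lower (median -0.09). Spns2, the exporter of S1P, had 107, 75.0 and 80.01 CPM in DBL and 17.4, 17.8 and 14.8 CPM in ColGFP (log2 change 2.38 ± 0.12, adjusted p = 2.09e-05). The receptor S1pr1, which keeps the endothelial barrier, had 406, 244 and 246 CPM in DBL and 91.0, 53.0 and 41.0 CPM in ColGFP (log2 change 2.31 ± 0.12, adjusted p = 2.11e-05). The receptor S1pr3 had 92.2, 67.3 and 67.7 CPM in DBL and 393, 257 and 316 CPM in ColGFP (log2 change -2.09 ± 0.10, adjusted p = 1.75e-05). S1pr4, a receptor known from leukocytes, had 9.53, 15.0 and 15.4 CPM in DBL and 5.70, 3.97 and 4.61 CPM in ColGFP (log2 change 1.45 ± 0.24, adjusted p = 0.00428). Receptors of S1P thus differed in direction, and Enpp2, the enzyme that makes lysophosphatidic acid, was lower. Of 25 retinoid genes 4 were higher and 5 lower (median 0.05). The retinoic acid synthases split in the same way: Aldh1a2 was higher, Aldh1a3 had 66.5, 50.9 and 52.4 CPM in DBL and 6.22, 21.4 and 18.1 CPM in ColGFP (log2 change 2.01 ± 0.37, adjusted p = 0.0078), and Aldh1a1 had 141, 221 and 195 CPM in DBL and 561, 507 and 501 CPM in ColGFP (log2 change -1.52 ± 0.15, adjusted p = 0.000386). Lrat, which stores retinol as ester and marks lipofibroblasts, had 31.9, 77.2 and 61.7 CPM in DBL and 193, 266 and 282 CPM in ColGFP (log2 change -2.18 ± 0.15, adjusted p = 7.08e-05). Cyp26b1, which degrades retinoic acid, had 69.3, 98.0 and 95.8 CPM in DBL and 39.3, 28.5 and 27.5 CPM in ColGFP (log2 change 1.46 ± 0.19, adjusted p = 0.00138).

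**Figure D5:**
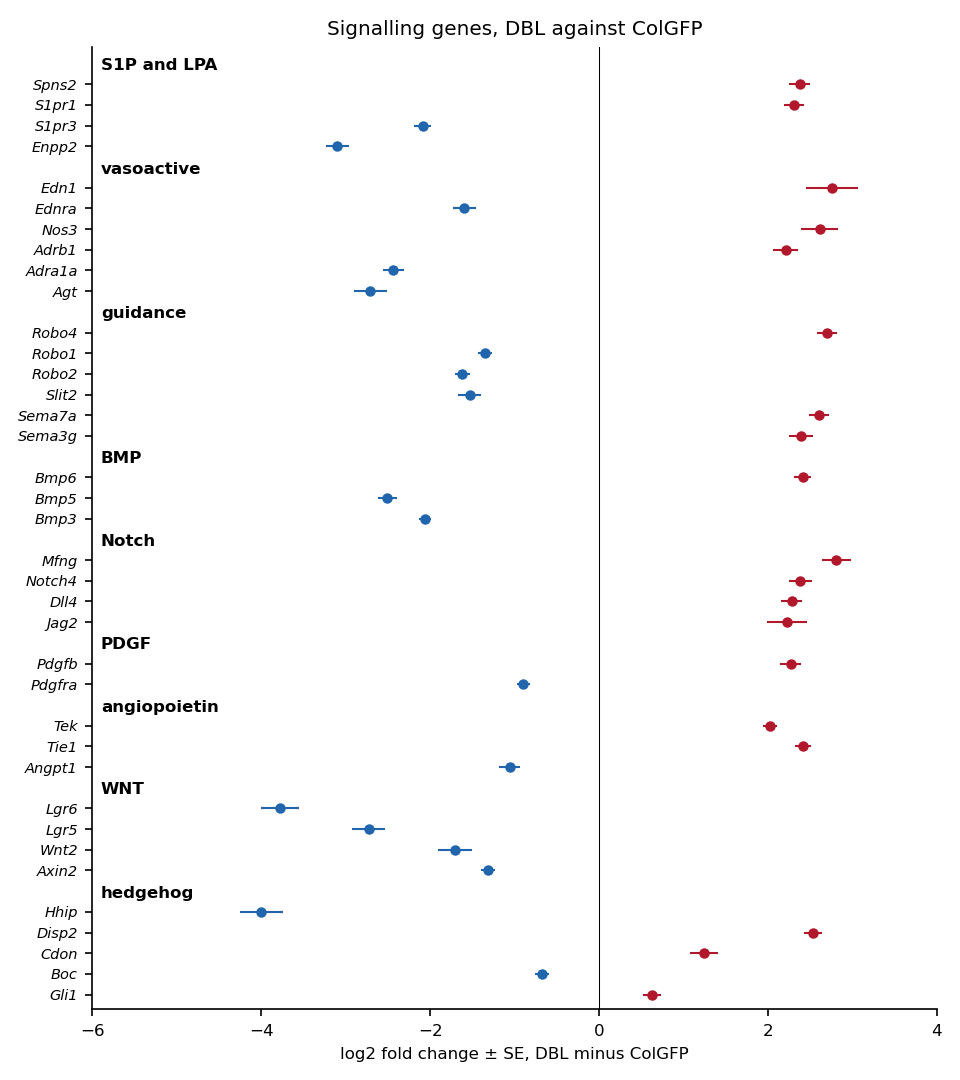
Log2 fold change (DBL minus ColGFP) with its standard error for 37 signalling genes grouped by pathway, red where higher and blue where lower in DBL. They were picked for large changes or after their values were seen, and all were called. Genes that did not pass, such as Ptch1 and Smo, are not shown, so the figure does not speak for whole pathways. Within an axis the signs differ by member, for example Bmp6 at 2.42 ± 0.10 and Bmp5 at -2.51 ± 0.11, or Robo4 at 2.70 ± 0.12 and Robo2 at -1.62 ± 0.09.

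Among 58 genes for chemokines and cytokines, 17 were higher (29.3%, against 11.5% of all genes) and 7 lower (median 0.57). The share lower, 12.1%, was near the 9.77% of all genes. Ackr2 (Ccbp2 in the table), a scavenger of inflammatory chemokines, had 65.5, 47.3 and 49.9 CPM in DBL and 10.7, 10.9 and 9.75 CPM in ColGFP (log2 change 2.36 ± 0.12, adjusted p = 2e-05). Tnfsf10, the death ligand TRAIL, had 208, 160.0 and 133 CPM in DBL and 35.4, 36.1 and 30.6 CPM in ColGFP (log2 change 2.28 ± 0.13, adjusted p = 3.57e-05). Cxcl12, the ligand of CXCR4, stands in the capillary list and had 952, 568 and 577 CPM in DBL and 149.7, 235 and 217 CPM in ColGFP (log2 change 1.78 ± 0.25, adjusted p = 0.00226). Cxcl5, a neutrophil chemokine, had 7.93, 1.597 and 1.61 CPM in DBL and 0.305, 0.584 and 0.447 CPM in ColGFP (log2 change 2.73 ± 0.61, adjusted p = 0.017). DBL 1 was several times higher than the other DBL libraries for Cxcl5, and the latter were under 2 CPM. Kitl, the ligand of Kit, named after its values were seen, had 161, 247 and 153 CPM in DBL and 95.2, 106 and 89.7 CPM in ColGFP (log2 change 0.94 ± 0.18, adjusted p = 0.00864). Of 48 complement and coagulation genes 10 were higher (3 without DBL 4, 4 without DBL 3 or ColGFP 2, 5 without ColGFP 3) and 8 lower.

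Antigen presentation and interferon genes were called higher more often than lower. Of 51 tested, 25 were higher and 2 lower (0 without DBL 4 or ColGFP 2, 1 without DBL 3 or ColGFP 3), and the median was 0.90 (1.75 in the first and 0.46 in the second series). H2-Q6, a class Ib histocompatibility gene of a family of near-identical copies, whose reads may be split between them, had 50.6, 19.9 and 24.8 CPM in DBL and 10.6, 4.90 and 3.71 CPM in ColGFP (log2 change 2.34 ± 0.15, adjusted p = 5.34e-05). Nlrc5, the activator of class I genes, had 135, 27.7 and 26.9 CPM in DBL and 19.3, 9.34 and 8.01 CPM in ColGFP (log2 change 2.08 ± 0.23, adjusted p = 0.000696). Igtp, an interferon-induced GTPase, had 259.5, 54.4 and 49.3 CPM in DBL and 41.5, 26.1 and 25.5 CPM in ColGFP (log2 change 1.56 ± 0.31, adjusted p = 0.0103). Ciita, the activator of class II genes, had 79.3, 17.7 and 18.1 CPM in DBL and 12.4, 9.69 and 9.17 CPM in ColGFP (log2 change 1.54 ± 0.34, adjusted p = 0.0157). In each of these DBL 1 was more than 2 times any other DBL or ColGFP library.

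Immediate early and stress genes that passed were all lower in DBL. Of 37 tested, none was higher (DESeq2 0, limma-voom 0, unadjusted 3) and 18 were lower (median -0.28), 12 of them whichever library was left out. Btg2, an antiproliferative gene induced by p53 and growth factors, had 789.7, 1523 and 1631 CPM in DBL and 2443, 2952 and 3229 CPM in ColGFP (log2 change -1.19 ± 0.14, adjusted p = 0.000953). Nr4a2, an orphan nuclear receptor, had 104, 261 and 292 CPM in DBL and 295, 586 and 614 CPM in ColGFP (log2 change -1.24 ± 0.11, adjusted p = 0.000171). Gadd45b, a stress sensor, had 101, 189 and 196 CPM in DBL and 247, 438 and 442 CPM in ColGFP (log2 change -1.23 ± 0.07, adjusted p = 4.05e-05). Nr4a3 had 55.0, 109 and 124 CPM in DBL and 125, 237 and 253 CPM in ColGFP (log2 change -1.11 ± 0.08, adjusted p = 0.000105). Within each group these genes were lowest in replicate 1, and for Nr4a2 and Nr4a3 the highest DBL library came close to ColGFP 1.

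Junction genes were higher more often than lower, with 16 of 33 higher and 5 lower (median 0.49). Cldn5, the claudin of endothelial tight junctions, had 223, 238 and 249.6 CPM in DBL and 62.0, 49.6 and 38.6 CPM in ColGFP (log2 change 2.26 ± 0.16, adjusted p = 7.11e-05). Beside Cdh5 and Cdh4, Cdh11, the cadherin of fibroblasts, had 251, 291 and 279 CPM in DBL and 618, 646 and 654 CPM in ColGFP (log2 change -1.23 ± 0.08, adjusted p = 4.33e-05). Of 56 protocadherin genes 6 were higher and 15 lower (8 without DBL 4, 9 without ColGFP 3, 26 without DBL 1 or ColGFP 1). Pcdh1 had 310.0, 253 and 273 CPM in DBL and 60.7, 52.2 and 46.8 CPM in ColGFP (log2 change 2.39 ± 0.08, adjusted p = 1.73e-05). Pcdh12, an endothelial protocadherin, had 71.7, 69.0 and 70.0 CPM in DBL and 13.9, 16.9 and 16.0 CPM in ColGFP (log2 change 2.17 ± 0.10, adjusted p = 1.73e-05). Pcdh17 had 155, 150.4 and 129 CPM in DBL and 51.3, 41.9 and 41.4 CPM in ColGFP (log2 change 1.70 ± 0.09, adjusted p = 2.57e-05). Many protocadherins of the clusters share exons, and their counts depend on how shared reads were assigned. Of 19 tetraspanin genes 9 were higher and 1 lower (2 without DBL 1 or ColGFP 1). Tspan7 had 370.2, 424 and 399 CPM in DBL and 107, 79.6 and 66.8 CPM in ColGFP (log2 change 2.26 ± 0.16, adjusted p = 7.24e-05), and Tspan18 had 217, 251 and 257 CPM in DBL and 63.8, 69.4 and 63.4 CPM in ColGFP (log2 change 1.88 ± 0.08, adjusted p = 1.73e-05). Of 16 genes of caveolae and membrane scaffolds 5 were higher (3 without ColGFP 2, 8 without DBL 1 or ColGFP 1) and 4 lower (2 without DBL 3, DBL 4, ColGFP 2 or ColGFP 3).

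Of 17 voltage-gated calcium channel genes 7 were lower, against 9.77% of all genes, and 1 higher (0 without DBL 3, DBL 4, ColGFP 2 or ColGFP 3, 2 without DBL 1 or ColGFP 1), while the others were not called (median -0.46). Cacna1d, an L-type pore, had 111, 108 and 103 CPM in DBL and 345, 337 and 352 CPM in ColGFP (log2 change -1.68 ± 0.07, adjusted p = 1.73e-05). The accessory subunit Cacna2d3 had 2.45, 2.48 and 2.75 CPM in DBL and 16.3, 10.7 and 13.2 CPM in ColGFP (log2 change -2.38 ± 0.19, adjusted p = 0.00013). The accessory subunits Cacnb2 and Cacna2d1 had log2 fold changes of -1.74 ± 0.11 (adjusted p = 4.63e-05) and -1.26 ± 0.11 (adjusted p = 0.000208). The pores and accessory subunits described were lower, but the 1 higher gene, Cacna1a, also encodes a pore. Its means were 13.5 CPM in DBL and 7.74 CPM in ColGFP (log2 change 0.89). Its call was lost without DBL 3, DBL 4, ColGFP 2 or ColGFP 3. Of 60 potassium channel genes 8 were higher (5 without DBL 3 or DBL 4, 15 without DBL 1 or ColGFP 1) and 14 lower. Kcnh1, a voltage-gated channel, was among the higher, with 19.2, 28.2 and 23.5 CPM in DBL and 6.18, 3.50 and 3.40 CPM in ColGFP (log2 change 2.45 ± 0.27, adjusted p = 0.000581). Kcnk13, a background channel, had 8.05, 4.30 and 4.21 CPM in DBL and 20.4, 24.7 and 23.5 CPM in ColGFP (log2 change -2.10 ± 0.24, adjusted p = 0.000748).

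Of 34 genes of lipid uptake and storage 4 were higher (9 without DBL 1, 10 without ColGFP 1), a share near the 11.5% of all genes, and 11 were lower (6 without DBL 3, 7 without ColGFP 2), against 9.77% of all genes. Cd36, a fatty acid receptor of capillary endothelium and macrophages, had 586, 830.3 and 658 CPM in DBL and 352, 204 and 146 CPM in ColGFP (log2 change 1.64 ± 0.29, adjusted p = 0.00596). Plin2, the coat protein of lipid droplets, had 62.1, 45.9 and 46.3 CPM in DBL and 88.4, 67.5 and 67.8 CPM in ColGFP (log2 change -0.54 ± 0.07, adjusted p = 0.00163). G0s2, an inhibitor of lipolysis, had 20.9, 19.4 and 17.6 CPM in DBL and 84.3, 66.6 and 68.0 CPM in ColGFP (log2 change -1.91 ± 0.09, adjusted p = 1.75e-05). Of 26 imprinted genes 8 were higher and 3 lower (5 without DBL 1 or ColGFP 1). Meg3, a long noncoding RNA of the Dlk1-Dio3 cluster, had 210.1, 209 and 191 CPM in DBL and 47.6, 100.1 and 106 CPM in ColGFP (log2 change 1.34 ± 0.23, adjusted p = 0.00492). Zim1 had 19.1, 23.3 and 23.02 CPM in DBL and 6.09, 6.36 and 7.87 CPM in ColGFP (log2 change 1.68 ± 0.13, adjusted p = 0.000102), and Mest had 22.6, 28.4 and 29.7 CPM in DBL and 7.92, 10.7 and 10.7 CPM in ColGFP (log2 change 1.46 ± 0.10, adjusted p = 7.32e-05).

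Cell cycle genes were called higher at 15.6% and lower at 2.22%, against 11.5% and 9.77% of all genes. Of 45 tested, 7 were higher (3 without DBL 3, DBL 4, ColGFP 2 or ColGFP 3) and 1 lower (2 without DBL 1 or ColGFP 1). Ccnd1, cyclin D1, had 115, 78.1 and 78.6 CPM in DBL and 48.9, 33.0 and 29.1 CPM in ColGFP (log2 change 1.30 ± 0.08, adjusted p = 5.38e-05). Mki67, the proliferation marker, had 34.9, 18.2 and 16.0 CPM in DBL and 19.6, 15.6 and 14.5 CPM in ColGFP and did not pass (log2 change 0.41 ± 0.16, adjusted p = 0.118). Of 31 hypoxia and glycolysis genes 6 were higher (3 without DBL 4 or ColGFP 3) and 3 lower (7 without DBL 1 or ColGFP 1), led by Epas1. Families of general function held few calls against the background of 21.3%. Of 36 genes grouped by symbol as subunits of NADH dehydrogenase 1 was higher and none lower (DESeq2 0, limma-voom 0, unadjusted 1), with 1 without DBL 1 or ColGFP 1. The higher gene was Ndufa4l2, the subunit-like protein given with the pericyte genes. Of 344 Zfp zinc finger genes 10 were higher (4 without DBL 4, 5 without ColGFP 2 or ColGFP 3, 6 without DBL 3, 18 without DBL 1 or ColGFP 1) and 13 lower (4 without ColGFP 2, 5 without DBL 4, 6 without DBL 3 or ColGFP 3). No gene of 31 histone genes was called by edgeR, neither higher (DESeq2 0, limma-voom 0, unadjusted 2) nor lower (DESeq2 0, limma-voom 0, unadjusted 1), and of 14 housekeeping genes 1 was higher (3 without DBL 1 or ColGFP 1) and 1 lower (0 without DBL 4, ColGFP 2 or ColGFP 3).

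The genes with the smallest adjusted p for a difference between the series included acute-phase, interferon-induced and airway genes. Saa3, an acute-phase apolipoprotein, had 752, 14.0 and 14.4 CPM in DBL and 21.1, 6.71 and 6.08 CPM in ColGFP, and its log2 difference was 5.15 in the first series and 1.14 in the second (interaction adjusted p = 1.49e-07). Hp, haptoglobin, had 1279, 70.0 and 77.3 CPM in DBL and 104, 44.7 and 43.4 CPM in ColGFP, with differences of 3.62 in the first series and 0.74 in the second (interaction adjusted p = 1.74e-07). Ptx3, a soluble pattern receptor, had 73.9, 30.5 and 30.1 CPM in DBL and 1.44, 17.0 and 16.9 CPM in ColGFP, with differences of 5.601 in the first series and 0.83 in the second (interaction adjusted p = 1.74e-07). Dio2, which activates thyroid hormone, had 90.1, 82.3 and 79.0 CPM in DBL and 2.35, 42.5 and 42.8 CPM in ColGFP, with differences of 5.21 in the first series and 0.92 in the second (interaction adjusted p = 1.49e-07). Saa3 and Hp were far higher in DBL 1 than in any other library, while for Ptx3 and Dio2 it was ColGFP 1 that stood far below the other DBL and ColGFP libraries. In TDonly, Ptx3 had 2.27, 2.70 and 2.74 CPM and Dio2 had 1.96, 7.73 and 9.37 CPM. The interferon-induced GTPases Gbp5 and Gbp2 were also far higher in DBL 1 than in the other DBL libraries or in ColGFP. In TDonly too replicate 1 was the highest, with 339, 26.3 and 25.1 CPM for Gbp5 and 1106, 151 and 155 CPM for Gbp2. Gbp5 had 242, 20.8 and 21.1 CPM in DBL and 17.97, 14.3 and 16.3 CPM in ColGFP, with differences of 3.75 in the first series and 0.46 in the second (interaction adjusted p = 3.01e-07). Gbp2 had 912, 146 and 152 CPM in DBL and 124, 112 and 105 CPM in ColGFP, with differences of 2.88 in the first series and 0.46 in the second (interaction adjusted p = 4.29e-07). None of these 6 genes was called in the contrast over both series, although each had a positive difference in both.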

How the data were processed

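RNA from sorted lung cells was sequenced after ribosomal RNA depletion, per the series text. The labels' protocol describes RNA from frozen lung instead. The authors deposited raw counts per gene symbol, made with cutadapt, TopHat and HTSeq on mm10, per the submitters' processing notes. The sources used here give neither versions nor annotation nor strand setting. Columns were matched to samples by the core sample number in the sample descriptions, and 3 further columns of the table, which match no sample, were not used. Depth was 17820969 to 26147475 counts per library.

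The counts as deposited were tested with edgeR 4.0.16 (R 4.3.3): filterByExpr with a minimum count of 10, TMM factors, glmQLFit and glmQLFTest (two-sided) on group plus core number series, with Benjamini-Hochberg adjustment over 15141 genes at 0.05. Residual degrees of freedom were 3, and the prior added 4.31. A standard error is the absolute log2 fold change divided by the square root of its F. DESeq2 1.42.0, limma-voom (limma 3.58.1) and other scalings, filters, covariates and sets of libraries were tried as alternatives. TDonly levels are CPM with TMM factors over all 9 libraries and were tested only in the alternatives with all 9 libraries. The scripts were tested on simulated data.

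Genes were named by rule: the reporter genes; in each direction the 12 with the largest log2 fold change and the 5 with the largest CPM difference among genes called with and without each library, with at least 10 CPM in the higher group and no overlap; up to 5 members of each list; and the 8 with the largest difference between series. Some genes that the rule names are not reported here. A few genes outside the rule, Ptprc and Smo among them, are given because a statement needs them. The members, lists and families were chosen with earlier results of these data known. Positions are from GENCODE M21 and promoters from RefSeq, both on GRCm38.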

Additional observations from a re-analysis of the deposited data

Results flagged for a closer look

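The results in this section are the 83 of 236 genes named in the text whose DBL against ColGFP difference was not the same in the 2 core number series. They were picked out by the interaction term of the edgeR model, with an adjusted p under 0.05. Over all genes tested, 1621 of 15141 (10.7%) passed that test. Of the 236, 8 were named because of it and many others for large changes. The count of 83 is therefore no result about the named genes. The first series holds 1 library of each group and the test has 2 residual degrees of freedom, so the spread within the first series was not measured. From the 6 libraries of the test, a difference between series cannot be told apart from a difference of DBL 1 or ColGFP 1 alone. TDonly 1, of the first series too, was not in the test. It had 339 CPM of Gbp5 against 26.3 and 25.1 CPM in TDonly 2 and 3. For Hp it had 134 CPM against 164 and 149 CPM. Whether TDonly shares these shifts was not tested.

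For 6 genes the log2 difference, taken from log2 CPM and not from the model, had opposite signs, negative in the first series and positive in the second. Scgb1a1 was at -1.87 in the first and 2.81 in the second (adjusted p = 1.74e-07). Cyp2f2 was at -1.596 in the first and 2.36 in the second (adjusted p = 3.01e-07). Ednrb was at -1.18 in the first and 0.44 in the second (adjusted p = 8.15e-05). Lyz2 was at -0.85 in the first and 0.59 in the second (adjusted p = 0.000601). Cdh1 was at -0.59 in the first and 0.93 in the second (adjusted p = 0.00132). Sftpc was at -0.63 in the first and 0.59 in the second (adjusted p = 0.00413). They are markers of airway and alveolar epithelium and of macrophages, beside the aerocyte marker Ednrb.

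In 35 genes the excess in DBL was larger in the first series. On the log2 scale Saa3, an acute-phase serum amyloid, was higher by 5.15 in the first series and 1.14 in the second, and Ptx3, the long pentraxin of acute inflammation, by 5.601 in the first series and 0.83 in the second. Gbp5, an interferon-induced GTPase, was higher by 3.75 in the first series and 0.46 in the second, and Ccl11 by 4.19 in the first series and 1.55 in the second. The group also holds the type I collagen chains, selectins and several adventitial fibroblast markers. The adjusted p of the difference between series was 1.49e-07 for Saa3, 1.49e-07 for Dio2, 1.74e-07 for Hp, 1.74e-07 for Ptx3, 3.01e-07 for Gbp5 and 4.29e-07 for Gbp2. It was 3.62e-06 for Ccl11, 4.26e-06 for Pi16, 1.46e-05 for Ly6a, 2.14e-05 for Entpd2, 3.26e-05 for Cxcl12 and 3.29e-05 for Scara5. Values of 3.52e-05 for Igtp, 5.81e-05 for Dcn, 5.85e-05 for Aldh1a3, 7.58e-05 for Igfbp4, 0.000127 for Ciita and 0.000214 for Meg3 followed. Next came 0.000227 for Aldh1a2, 0.000503 for Fbln2, 0.000746 for Edn1, 0.00113 for Cdon, 0.00118 for Col3a1 and 0.00128 for Chl1. Further adjusted p-values were 0.00141 for Emilin2, 0.00171 for Nlrc5, 0.00221 for Sele, 0.00274 for Col1a2, 0.00433 for Bcl6b and 0.00745 for Col1a1. The highest in this group were 0.00941 for Emcn, 0.0143 for Selp, 0.0166 for Cxcl5, 0.0224 for Ly6c1 and 0.0398 for Plvap.

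In 13 genes higher in DBL the excess was larger in the second series. Most of them are known from endothelium. Lyve1, a hyaluronan receptor of lymphatic endothelium, was higher by 1.61 in the first series and 2.82 in the second, and Cd36, a fatty acid transporter of capillaries, by 0.74 in the first series and 2.10 in the second. Adjusted p-values of the difference were 0.00114 for Cyp26b1, 0.00128 for Lyve1, 0.00135 for Epas1, 0.00302 for Cd36, 0.00753 for Gata2 and 0.0103 for Kcnh1. For the remaining genes they were 0.0118 for Tspan7, 0.0207 for Sema3g, 0.0213 for Prx and 0.0324 for Gpr116. The last were 0.0333 for S1pr4, 0.0342 for Ptprb and 0.0434 for Cldn5.

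In 22 genes the deficit in DBL was larger in the first series. Hhip had a log2 difference of -4.76 in the first and -3.63 in the second, and Ptprc of -2.89 and -0.11. The test of the difference gave adjusted p-values of 2.24e-05 for Ptprc, 5.85e-05 for Igfbp3, 8.63e-05 for Aspn, 0.000132 for Inmt, 0.000262 for Acta2 and 0.000652 for Pappa2. It gave 0.000741 for Ogn, 0.0014 for Hhip, 0.00218 for Adamts8, 0.00322 for Btg2, 0.00338 for Wnt2 and 0.00342 for Trim67. Larger values were 0.00441 for Aldh1a1, 0.00647 for Col17a1, 0.00683 for Ednra, 0.00751 for Kcnj8, 0.022 for Npnt and 0.0279 for Fos. The largest were 0.0306 for Itga8, 0.0449 for Lrat, 0.0474 for Cacna1e and 0.0495 for Bmp5.

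In 7 genes the deficit was larger in the second series. Pdgfc, a ligand of the PDGF receptor alpha, had a log2 difference of -1.06 in the first and -2.51 in the second. Here the adjusted p of the difference was 0.00399 for Slit2, 0.00415 for Sparcl1, 0.00783 for Prelp and 0.00816 for Emilin1. Those left had 0.00844 for Kcnk13, 0.00997 for Gja5 and 0.0364 for Pdgfc.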

How the results depend on the processing

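The counts of 1742 higher and 1479 lower genes stayed within 1.5 times under DESeq2 (1851 and 1647), limma-voom (1779 and 1519), the other scalings, both other filters, all 9 libraries with or without the series term, no series term, runs of core numbers, the second series alone and the removal of the most abundant genes. Leaving out 1 library gave 1068 (without DBL replicate 4) to 2418 (without ColGFP replicate 1) higher genes, and 1010 to 1901 lower genes. With edgeR's glmTreat against a 2-fold change (log2 of 1), 340 and 199 passed. The replicate number of the titles was tried as a replicate block in place of the series. Only numbers 1 and 3 occur in both groups, and deviations from the group means correlated at 0.11 and 0.02 over genes, so the numbers are not shown to pair the libraries. With the replicate block 617 genes were higher and 440 lower. The counts of genes whose contrast differed between series (862 and 759) stayed within 1.5 times under each of the 3 alternatives tried.

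Of the 228 genes named for the contrast, 217 were called. Of these, 165 were called under every alternative, 31 lost their call under the replicate block and 37 under at least 1 other alternative, mostly those without the series term, and none changed sign. Genes that changed sign were among those not called. Ednrb was 0.44 in the second series alone and -0.32 to 0.44 when 1 library was left out. Prox1 was 0.26 under the replicate block and -0.46 to 0.13 when 1 library was left out. Sftpc ranged from -0.11 to 0.56 and Smo from -0.050 to 0.10 when 1 library was left out, and Smo was -0.014 with upper-quartile factors and -0.051 in the second series alone. Lyz2 was -0.042 without the series term, -0.053 with all 9 libraries and no series term, -0.012 under the replicate block, and -0.19 to 0.57 when 1 library was left out. The cause of these changes was not tested. Counts for lists and families were within 1.5 times of those given in 2624 of 3120 comparisons.

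Depth was similar in all libraries. With 3 libraries a group, differences that missed the threshold are not shown to be absent.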
